A study of Mus musculus with 33 samples.

Results

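Mouse mammary tumours carried as vehicle-treated transplants (VEH, 4 libraries) were compared with mammary tumours titled SPON that received no treatment (5 libraries), across all genes of the deposited count table. The libraries were picked by sample title, and the 9 libraries used here are part of a series of 33. The VEH tumours are those whose titles carry no further suffix and whose treatment field names vehicle. Another library with such a title has RP-6306 in its treatment field and was left out. All 9 libraries share the genotype label FVB, an inbred mouse strain, and the tissue label mammary tumour, and no age is given. The series concerns low molecular weight cyclin E, truncated forms of the protein that activates CDK2, and RP-6306, an inhibitor of the kinase PKMYT1. Its design text names cyclin E transgenic tumours and PyMT tumours, but neither group is tied to one of them by its labels. The tumour line, the host and the treatment time of the transplants are not given in the sources used here. One growth text, which speaks of transplanted tumours, is attached to every sample, SPON included. Vehicle, transplantation, tumour line and host therefore cannot be told apart in this contrast. Nothing in the labels ties the libraries of a group to different mice, and p-values then describe only how far these libraries spread.

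Epithelial cells are held together by E-cadherin, claudins and desmosomes and contain keratins. In an epithelial-to-mesenchymal transition these genes are silenced by repressors of the ZEB and SNAIL families, which bind E-box sequences in their promoters, while vimentin, fibronectin, collagens and proteases are made. Mammary tumours of mice range from luminal, through basal, to claudin-low, and claudin-low tumours resemble mesenchymal cells. PKMYT1 and WEE1 place inhibitory phosphates on CDK1, which drives mitosis, and cyclin E with CDK2 drives entry into S phase.

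VEH libraries held 13965442 to 15972632 counts and SPON libraries 14277130 to 18126639. Levels are given as CPM, counts scaled to a common library size, with library sizes adjusted by trimmed mean of M values (TMM) over the 33 libraries. CPM are not corrected for transcript length, so they compare a gene between libraries and not genes with each other. Genes encoded by the mitochondrion held 1.93% to 2.64% of the counts in VEH and 2.89% to 23.6% in SPON, with 20.0% in SPON 1 and 23.6% in SPON 5. On the first principal component, which held 55.3% of the variance of log2 CPM over the genes tested, all VEH libraries lay apart from all SPON libraries. The second held 15.7% and separated SPON 1 and SPON 4 from SPON 2, SPON 3 and SPON 5. Pearson correlations of log2 CPM across genes, which are not independent replicates, were 0.947 to 0.972 between VEH libraries, 0.826 to 0.917 between SPON libraries and 0.712 to 0.823 between the groups. Correlations were lower between SPON libraries than between VEH libraries.

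**Figure D1:**
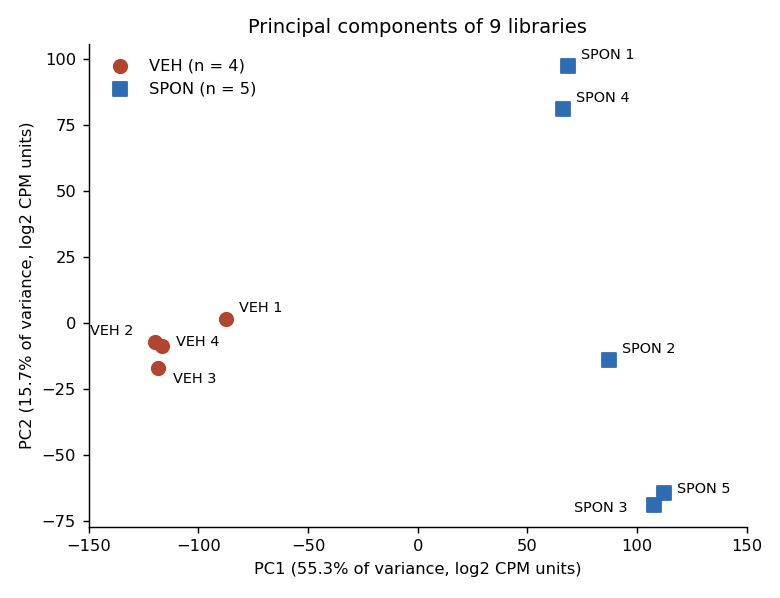
Principal components of log2 CPM over the genes tested, with the first component on the x axis (55.3% of variance) and the second on the y axis (15.7%). Each point is 1 library. The 4 VEH libraries lie at negative values of the first component and the 5 SPON libraries at positive values, where SPON 1 and SPON 4 stand above the others.

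Of 15485 genes tested with edgeR's quasi-likelihood test, 4361 (28.2%) had a Benjamini-Hochberg adjusted p under 0.05. Of these, 2113 (13.6% of the genes tested) were higher in VEH and 2248 (14.5%) were lower. A change of at least 4-fold was seen for 1107 of the genes higher in VEH and for 905 of those lower. The median log2 fold change over all genes tested was -0.12, and this is the value against which the medians of gene lists are to be read. When each library was left out in turn, 2259 genes were called in all 9 fits, 1319 of them higher and 940 lower. Fewer calls were made without any single VEH library than without any single SPON library. The number of calls was 2460, 2765 and 2791 without VEH 2, VEH 3 and VEH 4. Below, a gene is said to have risen or fallen in VEH relative to SPON only where its adjusted p is under 0.05, and log2 fold changes are VEH minus SPON with their standard error (SE). A gene passes the filter on low counts if it is high in 1 group, so a member near 0 in the other group had to differ, and counts over the tested members describe those members alone. This holds for every gene below that is near 0 in 1 group, also where it is not said again. In whole tumours, fewer cells of a type and less RNA per cell cannot be told apart.

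**Figure D2:**
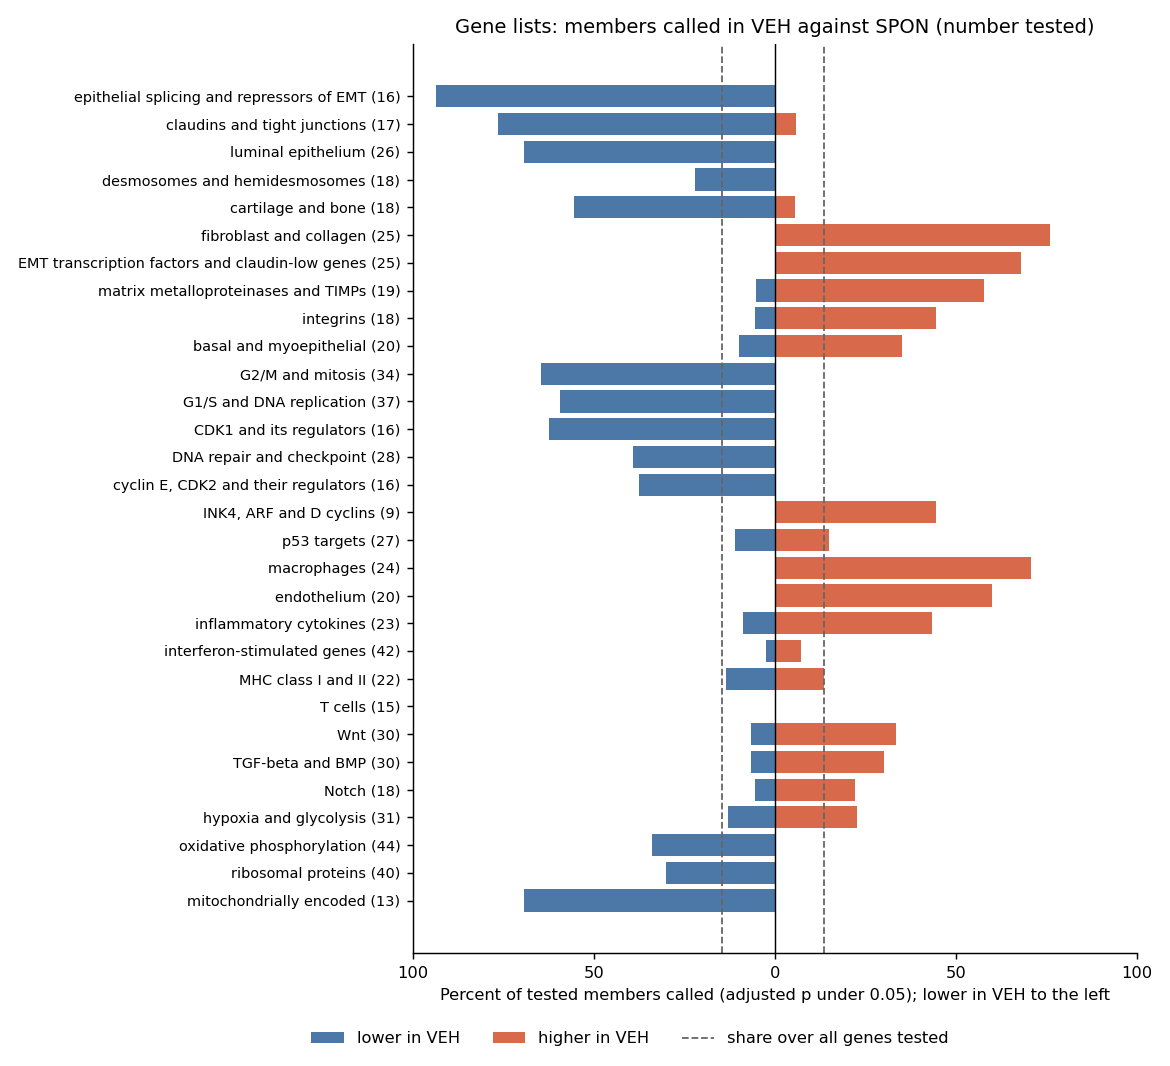
Share of the tested members of 30 gene lists called lower in VEH (bars to the left) or higher in VEH (bars to the right), in percent of the members tested, with the number tested in brackets. Dashed lines mark the shares over all genes tested, 14.5% lower and 13.6% higher. Luminal, tight junction, DNA replication and mitosis lists extend mainly to the left. Fibroblast, EMT, macrophage and endothelial lists extend mainly to the right. Cartilage and bone extends mainly to the left, and basal and myoepithelial and INK4, ARF and D cyclins mainly to the right.

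Many genes of epithelial cells were lower in VEH. Of the luminal epithelium list, 0 rose and 18 fell of 26 tested (27 listed), with a median log2 fold change of -3.73. Epcam (ENSMUSG00000045394, chr17:87635979-87651129 in GRCm38.p6), a surface adhesion protein of epithelial cells, had 239, 26.3, 8.92 and 9.86 CPM in VEH 1 to VEH 4, against 1209, 1563, 1172, 1358 and 1693 CPM in SPON 1 to SPON 5. VEH 1 held more than the other VEH libraries and no VEH library came near the SPON range (log2 fold change -4.35 ± 1.02 (SE), adjusted p 0.0116, and -6.57 without VEH 1). Cdh1, which encodes E-cadherin, had 78.2, 28.6, 6.43 and 9.29 CPM in VEH 1 to VEH 4, against 502, 576, 551, 474 and 389 CPM in SPON 1 to SPON 5 (log2 fold change -4.07 ± 0.71, adjusted p 0.00309, and -5.11 without VEH 1). Both genes were thus lowest in the same VEH libraries and highest in VEH 1. St14, which encodes the membrane protease matriptase, had 2.93 to 36.7 CPM in VEH and 308 to 343 CPM in SPON (log2 fold change -4.76 ± 0.79, adjusted p 0.00245, and -6.30 without VEH 1). Krt18, a keratin of simple epithelia, had 70.01 to 273 CPM in VEH and 864 to 4193 CPM in SPON (log2 fold change -3.76 ± 0.65, adjusted p 0.00284). Its usual partner Krt8 had 505 to 1535 CPM in VEH and 449 to 2806 CPM in SPON, with overlapping groups (log2 fold change -0.75 ± 0.53, adjusted p 0.312). The receptor gene Erbb2 had 38.4 to 58.9 CPM in VEH and 85.4 to 161 CPM in SPON (log2 fold change -1.59 ± 0.26, adjusted p 0.00228). Gata3, a luminal transcription factor, had 10.7 to 13.8 CPM in VEH and 1.97 to 71.7 CPM in SPON (log2 fold change -1.58 ± 0.92, adjusted p 0.224). Its VEH values lay inside the SPON range.

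Among factors that keep the epithelial state, the list of epithelial splicing and repressors of EMT, 0 rose and 15 fell of 16 tested (16 listed), with a median log2 fold change of -4.39. Ovol2, a transcription factor known to repress Zeb1, had 0.392, 0.0722, 0 and 0 CPM in VEH 1 to VEH 4, against 9.96, 9.92, 11, 8.65 and 13.4 CPM in SPON 1 to SPON 5 (log2 fold change -6.42 ± 0.87 (SE), adjusted p 0.000903, and -8.39 without VEH 1). Ovol2 is near 0 in VEH and passed the filter on low counts through SPON, so it had to differ. Prss8, the protease prostasin, had 1.71 to 7.45 CPM in VEH and 37.1 to 127 CPM in SPON (log2 fold change -4.49 ± 0.57, adjusted p 0.000677, and -5.09 without VEH 1). Tmc4, a channel-like membrane protein, had 4.43 to 20.6 CPM in VEH and 84.1 to 222 CPM in SPON (log2 fold change -4.29 ± 0.58, adjusted p 0.000867, and -5.13 without VEH 1). Spint2, an inhibitor of matriptase-type proteases, had 4.14 to 72.4 CPM in VEH and 507 to 2044 CPM in SPON (log2 fold change -5.52 ± 0.96, adjusted p 0.00298, and -6.94 without VEH 1). Spint2 belongs to the luminal epithelium list and not to this one. Rab25, an epithelial trafficking GTPase, had 0.50 to 15.7 CPM in VEH and 87.5 to 202 CPM in SPON (log2 fold change -4.84 ± 0.96, adjusted p 0.00545, and -6.87 without VEH 1). The highest VEH value of each of these genes was that of VEH 1, as for Epcam.

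Junction genes fell with them. Of claudins and tight junctions, 1 rose and 13 fell of 17 tested (18 listed), with a median log2 fold change of -3.59. Cldn7, a claudin of mammary epithelium, had 43.9, 6.94, 3.46 and 3.14 CPM in VEH 1 to VEH 4, against 333, 124, 329, 265 and 250.3 CPM in SPON 1 to SPON 5 (log2 fold change -4.23 ± 0.85 (SE), adjusted p 0.00597, and -5.88 without VEH 1). F11r, the junctional adhesion molecule JAM-A, had 20.7 to 51.9 CPM in VEH and 126 to 233 CPM in SPON (log2 fold change -2.50 ± 0.33, adjusted p 0.000838). Llgl2, a polarity protein, had 1.73 to 9.47 CPM in VEH and 24 to 108 CPM in SPON (log2 fold change -4.24 ± 0.66, adjusted p 0.00174, and -5.14 without VEH 1). Patj, a scaffold of tight junctions, had 1.16 to 8.3 CPM in VEH and 34.1 to 198 CPM in SPON (log2 fold change -4.85 ± 0.78, adjusted p 0.00215, and -5.91 without VEH 1). The 1 member that rose was Cldn12, with 41 to 60.8 CPM in VEH and 20.02 to 32.9 CPM in SPON (log2 fold change 0.88 ± 0.23, adjusted p 0.0172, and adjusted p 0.0614 without VEH 4). Of desmosomes and hemidesmosomes, 0 rose and 4 fell of 18 tested (19 listed), with a median log2 fold change of -1.29. Pkp3, a desmosomal plaque protein, had 6.22 to 16.9 CPM in VEH and 46.5 to 198 CPM in SPON (log2 fold change -3.33 ± 0.49, adjusted p 0.0013). Evpl, envoplakin, had 1.93 to 4.42 CPM in VEH and 9.73 to 31.9 CPM in SPON (log2 fold change -2.67 ± 0.43, adjusted p 0.0022). Jup, plakoglobin, had 136 to 185 CPM in VEH and 321 to 575 CPM in SPON (log2 fold change -1.62 ± 0.27, adjusted p 0.0024).

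Promoters of 4 of the genes that fell are shown because ZEB and SNAIL repressors are known to bind the E-box CAGGTG. All 4 windows printed hold matches, and Spint2, Rab25 and Cldn7 were named after their values were seen. They are examples and do not stand for their lists. Windows run from 250 bases before to 50 after a RefSeq start site in GRCm38.p6, are printed 5′ to 3′ on the strand of the gene, and carry in capitals each CAGGTG or its reverse complement CACCTG. These letters were searched on both strands. Cldn7 has a second start site in the table, whose window holds no match.
Epcam (chr17:87635729-87636028, plus strand): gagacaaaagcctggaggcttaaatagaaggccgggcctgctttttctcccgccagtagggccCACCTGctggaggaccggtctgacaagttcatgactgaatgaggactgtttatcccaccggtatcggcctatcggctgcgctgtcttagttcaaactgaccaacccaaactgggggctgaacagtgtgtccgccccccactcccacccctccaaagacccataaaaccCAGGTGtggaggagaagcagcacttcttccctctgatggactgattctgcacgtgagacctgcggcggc
Spint2 (chr7:29281928-29282227, minus strand): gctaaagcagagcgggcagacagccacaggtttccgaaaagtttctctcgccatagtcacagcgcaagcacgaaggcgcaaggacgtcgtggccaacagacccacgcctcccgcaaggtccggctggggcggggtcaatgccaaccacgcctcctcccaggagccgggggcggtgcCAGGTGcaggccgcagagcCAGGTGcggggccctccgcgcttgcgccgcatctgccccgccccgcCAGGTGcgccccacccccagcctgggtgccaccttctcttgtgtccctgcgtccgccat
Rab25 (chr3:88548230-88548529, minus strand): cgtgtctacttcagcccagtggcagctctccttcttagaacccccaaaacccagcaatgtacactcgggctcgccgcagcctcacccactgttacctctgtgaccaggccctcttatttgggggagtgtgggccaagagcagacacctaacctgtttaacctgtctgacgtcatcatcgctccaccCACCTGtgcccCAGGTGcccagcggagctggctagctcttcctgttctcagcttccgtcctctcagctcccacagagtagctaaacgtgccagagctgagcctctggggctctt
Cldn7 (chr11:69965171-69965470, plus strand): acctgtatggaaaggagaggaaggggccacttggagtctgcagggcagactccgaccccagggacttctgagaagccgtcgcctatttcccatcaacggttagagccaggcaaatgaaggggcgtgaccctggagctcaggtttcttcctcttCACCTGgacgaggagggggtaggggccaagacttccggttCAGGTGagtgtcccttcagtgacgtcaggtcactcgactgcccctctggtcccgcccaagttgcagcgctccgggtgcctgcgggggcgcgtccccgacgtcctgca

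The 4 windows held 2, 3, 2 and 2 matches in that order. Over all 32851 windows, 20.2% held at least 1 match, and over the 13903 windows of the genes tested, 18.3%. Of the windows of tested luminal epithelium members, 14 of 28 (50%) held a match, as did 5 of 9 (55.6%) of those of epithelial splicing and repressors of EMT and 12 of 21 (57.1%) of those of claudins and tight junctions. Among the lists that rose, 3 of 19 windows (15.8%) of the EMT transcription factor and claudin-low list and 1 of 19 (5.26%) of the fibroblast and collagen list held one. Not every tested member has a window. Windows covered 18 of 26 luminal members, 7 of 16 of the epithelial splicing list and 13 of 17 tight junction members. They covered 16 of 25 members of the EMT transcription factor list and 15 of 25 of the fibroblast list. Some members have several windows, and a match is a run of letters and not a measured site of binding. Whether ZEB or SNAIL repressors act at these promoters was not tested.

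Many mesenchymal genes were higher in VEH. Of EMT transcription factors and claudin-low genes, 17 rose and 0 fell of 25 tested (25 listed), with a median log2 fold change of 2.88. Zeb1 (ENSMUSG00000024238), the repressor of E-cadherin, had 94.3, 129.7, 81.1 and 111 CPM in VEH 1 to VEH 4, against 10.1, 9.87, 9.53, 6.58 and 17.2 CPM in SPON 1 to SPON 5 (log2 fold change 3.24 ± 0.30 (SE), adjusted p 0.000138). Its paralog Zeb2 had 112, 145, 145 and 144 CPM in VEH 1 to VEH 4, against 10.4, 12.9, 14.3, 10.5 and 25.5 CPM in SPON 1 to SPON 5 (log2 fold change 3.17 ± 0.30, adjusted p 0.00016). Every VEH library lay above every SPON library for both. Vim (ENSMUSG00000026728, chr2:13573927-13582826 in GRCm38.p6), the intermediate filament vimentin, had 4295, 4541, 5102 and 5703 CPM in VEH 1 to VEH 4, against 1540.2, 387, 261, 290.4 and 720.1 CPM in SPON 1 to SPON 5 (log2 fold change 2.88 ± 0.57, adjusted p 0.00522, and 3.52 without SPON 1). SPON 1 held the most vimentin transcript among SPON tumours. Snai1 had 179 to 305 CPM in VEH and 2.72 to 84.5 CPM in SPON (log2 fold change 3.06 ± 0.94, adjusted p 0.0347, and 4.17 without SPON 1 and adjusted p 0.0597 to 0.078 without any 1 VEH library or SPON 5). Snai2 (5.86 to 11.8 CPM in VEH and 0.387 to 6.46 CPM in SPON; log2 fold change 1.88 ± 0.80, adjusted p 0.103, and 2.90 and adjusted p 0.0135 without SPON 2) and Twist1 (79.6 to 111 CPM in VEH and 3.34 to 77.2 CPM in SPON; log2 fold change 1.52 ± 0.70, adjusted p 0.129, and 2.17 and adjusted p 0.037 without SPON 1) were not called with all libraries. Prrx1, a mesenchymal homeobox factor, had 134 to 179 CPM in VEH and 5.58 to 40.9 CPM in SPON (log2 fold change 3.20 ± 0.50, adjusted p 0.00186, and 3.84 without SPON 1).

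**Figure D3:**
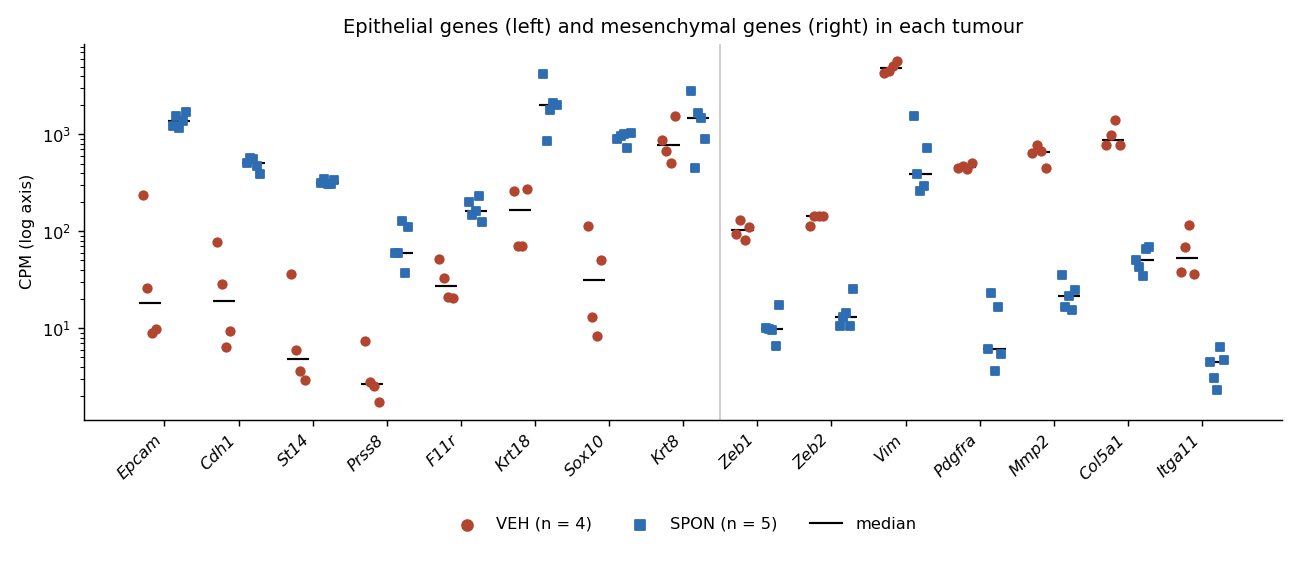
CPM on a log axis for 8 epithelial genes (left of the grey line) and 7 mesenchymal genes (right of it) in each tumour, with VEH as circles and SPON as squares and black bars at the group medians. Krt8 is the gene whose groups overlap. VEH 1 is the highest VEH point for Epcam, Cdh1, St14 and Prss8.

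Of the fibroblast and collagen list, 19 rose and 0 fell of 25 tested (25 listed), with a median log2 fold change of 3.21. Pdgfra, a growth factor receptor of fibroblasts and other mesenchymal cells, had 451, 476, 438 and 502 CPM in VEH 1 to VEH 4, against 6.15, 23.3, 3.61, 16.5 and 5.38 CPM in SPON 1 to SPON 5 (log2 fold change 5.37 ± 0.56 (SE), adjusted p 0.000251). The VEH values lay within a narrow band. Col5a1, a chain of type V collagen, had 777 to 1409.9 CPM in VEH and 34.9 to 68.4 CPM in SPON (log2 fold change 4.19 ± 0.32, adjusted p 5.67e-05). Its partner chain Col5a2 had 485 to 1135 CPM in VEH and 51 to 87.3 CPM in SPON (log2 fold change 3.34 ± 0.34, adjusted p 0.00022). Col12a1, a collagen that links fibrils, had 676 to 1002 CPM in VEH and 19.6 to 67.4 CPM in SPON (log2 fold change 4.22 ± 0.43, adjusted p 0.000218). Col1a1, the main chain of type I collagen, had 3714 to 6044 CPM in VEH and 321 to 709 CPM in SPON (log2 fold change 3.27 ± 0.36, adjusted p 0.000318). Fn1, fibronectin, had 6650.2 to 18067 CPM in VEH and 167 to 5337 CPM in SPON, with SPON 4 as the highest SPON library (log2 fold change 2.76 ± 0.99, adjusted p 0.0605, and 3.71 and adjusted p 0.0186 without SPON 4). Fn1 belongs to the list of EMT transcription factors and claudin-low genes. Tumour cells and stromal fibroblasts can both express these genes, and their shares were not tested.

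Matrix proteases rose with the collagens. Of matrix metalloproteinases and TIMPs, 11 rose and 1 fell of 19 tested (22 listed), with a median log2 fold change of 2.12. Mmp2, gelatinase A, had 636, 772, 668 and 453 CPM in VEH 1 to VEH 4, against 35, 16.6, 21.3, 15.4 and 24.7 CPM in SPON 1 to SPON 5 (log2 fold change 4.76 ± 0.33 (SE), adjusted p 4.27e-05). Timp2, an inhibitor that also helps to activate MMP2, had 1254 to 2249 CPM in VEH and 50.7 to 103 CPM in SPON (log2 fold change 4.44 ± 0.34, adjusted p 5.67e-05). Mmp19 had 38.4 to 62 CPM in VEH and 2.04 to 4.35 CPM in SPON (log2 fold change 4.07 ± 0.31, adjusted p 5.67e-05). All 3 were named for the smallest p of the list, so the lack of overlap between groups follows from how they were picked. Of integrins, the receptors for matrix, 8 rose and 1 fell of 18 tested (18 listed), with a median log2 fold change of 0.93. Itga11, a collagen receptor subunit, had 36.6 to 117 CPM in VEH and 2.31 to 6.39 CPM in SPON (log2 fold change 3.91 ± 0.44, adjusted p 0.000394). Itga7, a laminin receptor subunit, had 56.4 to 83.8 CPM in VEH and 1.91 to 8.54 CPM in SPON (log2 fold change 3.81 ± 0.47, adjusted p 0.000592). Itga5, the fibronectin receptor subunit, had 535 to 1232 CPM in VEH and 25.8 to 171 CPM in SPON (log2 fold change 3.52 ± 0.56, adjusted p 0.00194).

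Genes of position along the body differed as well. Where a group had no count, a fold is a bound with the floor at 3 counts over that group, and where it had 1 to 3 counts, the ratio of the summed counts per summed library size is given with its exact 95% interval, which covers counting error only. Of 36 Hox genes listed, 21 passed the filter on low counts. Those described here are near 0 in SPON and passed it through VEH, so no count of calls is given. Hoxa9 had 1.89, 1.88, 2.35 and 3.79 CPM in VEH 1 to VEH 4, against no count in SPON and was at least 61.6-fold higher in VEH, adjusted p 0.00136. Hoxc10 had 1.81 to 3.18 CPM in VEH and 0 to 0.0646 CPM in SPON and was 181-fold higher in VEH (95% counting interval 32 to 7201), adjusted p 0.000383, and at least 47.9-fold higher without SPON 4. Hoxb6 had 2.0 to 3.01 CPM in VEH and 0.0681 to 0.316 CPM in SPON (log2 fold change 3.48 ± 0.53 (SE), adjusted p 0.0015). Levels of these 3 genes were low in both groups. Of imprinted and fetal growth genes, 3 rose and 2 fell of 16 tested (19 listed), with a median log2 fold change of 0.62. These shares lie near those over all genes tested, 13.6% higher and 14.5% lower. 1 rose without VEH 4 and 5 without VEH 1, SPON 1 and SPON 4 together. Plagl1, an imprinted zinc finger factor, had 0.795 to 4.29 CPM in VEH and 7.7 to 37.2 CPM in SPON (log2 fold change -3.48 ± 0.61, adjusted p 0.00306). Grb10, an imprinted adaptor that restrains growth, had 30.2 to 44.4 CPM in VEH and 3.35 to 14.7 CPM in SPON (log2 fold change 2.01 ± 0.39, adjusted p 0.00506). Meg3, an imprinted noncoding RNA, had 31.4 to 79 CPM in VEH and 12.7 to 28.8 CPM in SPON (log2 fold change 1.25 ± 0.34, adjusted p 0.0213, and adjusted p 0.0772 without VEH 4).

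Cartilage genes were mostly lower in VEH. Of cartilage and bone, 1 rose and 10 fell of 18 tested (24 listed), with a median log2 fold change of -3.32. 5 fell without VEH 2 or VEH 4 and 6 without VEH 3. Col2a1, the main collagen of cartilage, had 3.46, 0.433, 1.38 and 2.36 CPM in VEH 1 to VEH 4, against 426, 415, 196, 80.4 and 21 CPM in SPON 1 to SPON 5 (log2 fold change -6.93 ± 1.05 (SE), adjusted p 0.0015). Col9a2, a chain of type IX collagen, had 0.429 to 10.8 CPM in VEH and 36 to 186 CPM in SPON (log2 fold change -5.02 ± 1.06, adjusted p 0.00715, and -7.15 without VEH 1). Chad, chondroadherin, had 0.361 to 1.18 CPM in VEH and 4.52 to 173 CPM in SPON (log2 fold change -6.71 ± 1.27, adjusted p 0.0043). The 1 member that rose was Acan, aggrecan, with 252, 489, 592 and 304 CPM in VEH 1 to VEH 4, against 31.6, 4.18, 0.408, 0.904 and 0 CPM in SPON 1 to SPON 5 (log2 fold change 5.73 ± 1.41, adjusted p 0.0141, and 8.14 without SPON 1). Aggrecan was thus high in the tumours with little Col2a1. Of skeletal muscle, 2 rose and 0 fell of 9 tested (24 listed), with a median log2 fold change of 0.73. Acta1, skeletal actin, had 598, 937, 217 and 70.3 CPM in VEH 1 to VEH 4, against 8.4, 13.4, 0.0681, 0.0646 and 0 CPM in SPON 1 to SPON 5 (log2 fold change 6.63 ± 1.61 (SE), adjusted p 0.0131, and 6.02 without VEH 2 and 7.68 without SPON 2). Ttn, titin, had 3.07 to 6.22 CPM in VEH and 0.272 to 2.69 CPM in SPON (log2 fold change 2.28 ± 0.66, adjusted p 0.0284, and 3.23 without SPON 2 and adjusted p 0.0501 to 0.0801 without VEH 1, VEH 2, VEH 3 or SPON 5). Mylpf, a fast muscle myosin light chain, had 0.415 to 1.44 CPM in VEH and 0.71 to 4.28 CPM in SPON (log2 fold change -1.44 ± 0.65, adjusted p 0.119). The summed level of the muscle list was 94.8 to 955 CPM in VEH and 8.99 to 41.4 CPM in SPON, and 6 of its 24 members had no count in any VEH library and 4 in any SPON library. Acta1 alone made up most of the sum in each VEH library.

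Basal genes split. In the basal and myoepithelial list, 7 rose and 2 fell of 20 tested (22 listed), with a median log2 fold change of 0.95. Pdpn, podoplanin, rose with 182 to 394 CPM in VEH and 3.13 to 15.4 CPM in SPON (log2 fold change 4.94 ± 0.50, adjusted p 0.00022). Cnn1, calponin of smooth muscle and myoepithelium, had 284, 342, 133 and 28.5 CPM in VEH 1 to VEH 4, against 10.1, 1.14, 0.477, 0.646 and 1.11 CPM in SPON 1 to SPON 5 (log2 fold change 6.14 ± 1.10 (SE), adjusted p 0.0034, and 7.82 without SPON 1). Acta2, smooth muscle actin, had 1869, 2293, 527 and 161 CPM in VEH 1 to VEH 4, against 67.1, 48.8, 33.6, 27.4 and 119 CPM in SPON 1 to SPON 5 (log2 fold change 4.30 ± 0.77, adjusted p 0.00348). VEH 1 and VEH 2 held most of both transcripts. Sox10, a transcription factor of basal mammary cells and neural crest, fell, with 113, 12.9, 8.22 and 50.7 CPM in VEH 1 to VEH 4, against 892, 964, 998, 724 and 1028 CPM in SPON 1 to SPON 5 (log2 fold change -4.37 ± 0.76, adjusted p 0.00294, and -5.30 without VEH 1). The basal keratin genes were not called: Krt14 had 10.2 to 74.9 CPM in VEH and 5.85 to 456 CPM in SPON (log2 fold change -2.12 ± 1.24, adjusted p 0.222, and -3.11 without VEH 2 and -0.53 without SPON 1). Krt5 had 0 to 3.11 CPM in VEH and 0.613 to 30.4 CPM in SPON (log2 fold change -3.32 ± 1.36, adjusted p 0.0924, and -4.47 without VEH 2 and -2.53 without SPON 2). Trp63, the basal factor p63, had 2.86 to 24.1 CPM in VEH and 0.408 to 18 CPM in SPON (log2 fold change 0.65 ± 0.95, adjusted p 0.64, and 1.26 without SPON 2).

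Of squamous differentiation, 0 rose and 3 fell of 7 tested (18 listed), with a median log2 fold change of -1.10. Calml3, a calmodulin-like protein, had 0 to 1.37 CPM in VEH and 6.2 to 24.3 CPM in SPON (log2 fold change -4.87 ± 0.89, adjusted p 0.00371, and -5.98 without VEH 1). Dmkn, dermokine, had 0.0691 to 0.572 CPM in VEH and 1.14 to 42.3 CPM in SPON (log2 fold change -5.05 ± 1.14, adjusted p 0.00966, and -3.66 without SPON 3). Dmkn is near 0 in VEH and passed the filter on low counts through SPON, so it had to differ, and the 3 that fell include it. Sbsn, suprabasin, had 2.53 to 8.5 CPM in VEH and 7.83 to 29 CPM in SPON (log2 fold change -1.88 ± 0.47, adjusted p 0.0152, and adjusted p 0.0526 without VEH 2 and adjusted p 0.0533 without VEH 4). Of milk and alveolar genes, 1 rose and 4 fell of 11 tested (16 listed), with a median log2 fold change of -1.25. 1 fell without SPON 1, SPON 3 or SPON 4, 2 without SPON 2 and 2 without VEH 1, SPON 1 and SPON 4 together. Thrsp, a regulator of milk fat synthesis, had 0 to 0.207 CPM in VEH and 0.791 to 6.15 CPM in SPON (log2 fold change -4.86 ± 0.86, adjusted p 0.0033). Muc15 had 0.0722 to 0.553 CPM in VEH and 0.395 to 8.79 CPM in SPON (log2 fold change -4.08 ± 0.93, adjusted p 0.00995). Thrsp and Muc15 are near 0 in VEH and passed the filter on low counts through SPON, so they had to differ. Both are among the 4 that fell, so that count is not a result about the list. Xdh, xanthine dehydrogenase of milk fat globules, was the member that rose, with 217 to 305 CPM in VEH and 57.7 to 191 CPM in SPON (log2 fold change 1.46 ± 0.34, adjusted p 0.0111).

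Many cell cycle genes were lower in VEH. Pkmyt1 (ENSMUSG00000023908, chr17:23726336-23736735 in GRCm38.p6), the target of RP-6306, had 28, 20.2, 17.3 and 26.7 CPM in VEH 1 to VEH 4, against 45.8, 35.4, 59.4, 46.5 and 43.7 CPM in SPON 1 to SPON 5 (log2 fold change -1.04 ± 0.23 (SE), adjusted p 0.00898). No VEH library reached the lowest SPON library. Its substrate Cdk1 had 78.3, 58.1, 60.7 and 91.3 CPM in VEH 1 to VEH 4, against 214, 178, 143, 126 and 197 CPM in SPON 1 to SPON 5 (log2 fold change -1.30 ± 0.24, adjusted p 0.00419). Ccnb1, cyclin B1, had 55.4, 42.1, 23.7 and 53.4 CPM in VEH 1 to VEH 4, against 75.3, 131, 84.7, 98.8 and 83.9 CPM in SPON 1 to SPON 5 (log2 fold change -1.16 ± 0.28, adjusted p 0.0126). Kinase and substrate thus moved in the same direction. Wee1, the nuclear kinase with the same substrate, had 16.8 to 31.4 CPM in VEH and 23.3 to 61.3 CPM in SPON (log2 fold change -0.88 ± 0.31, adjusted p 0.0589, and adjusted p 0.0216 without SPON 1). Of CDK1 and its regulators, 0 rose and 10 fell of 16 tested (16 listed), with a median log2 fold change of -1.06. 6 fell without VEH 1, VEH 2 or VEH 3. Cdc25c, a phosphatase that removes the inhibitory phosphates, had 6.14 to 10.9 CPM in VEH and 23.9 to 45.2 CPM in SPON (log2 fold change -2.06 ± 0.31, adjusted p 0.0015). Lin9, a subunit of the complex that switches on mitotic genes, had 9.81 to 16.1 CPM in VEH and 25.5 to 67.4 CPM in SPON (log2 fold change -1.79 ± 0.31, adjusted p 0.00294).

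**Figure D4:**
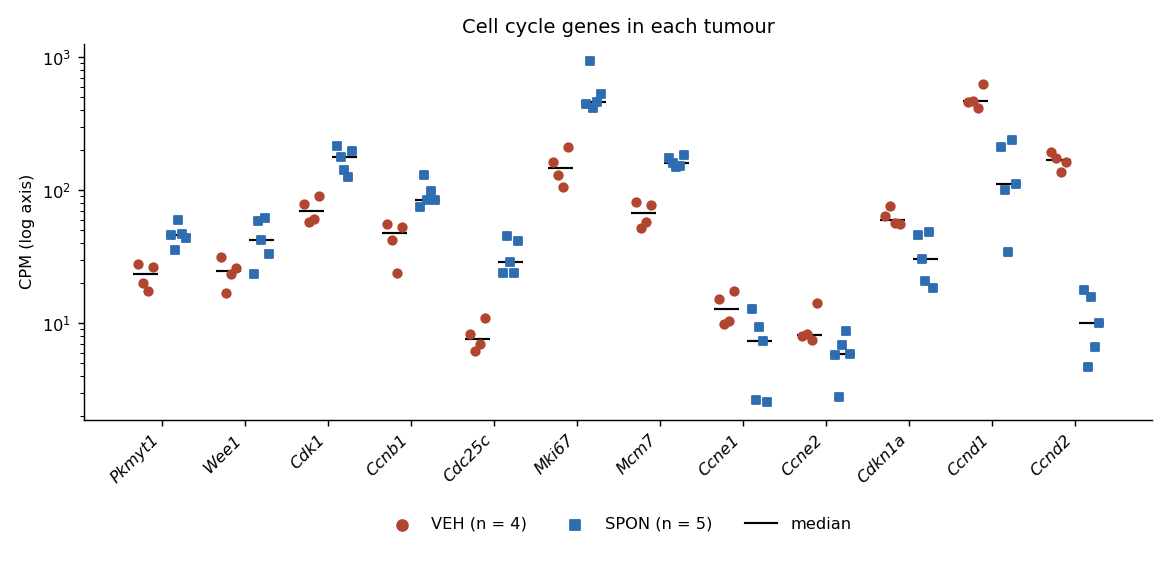
CPM on a log axis for 12 cell cycle genes in each tumour, with VEH as circles and SPON as squares and black bars at the group medians. Pkmyt1, Cdk1, Ccnb1, Cdc25c, Mki67 and Mcm7 are lower in VEH and Ccnd1 and Ccnd2 higher. Wee1, Ccne1 and Ccne2 overlap between the groups.

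Of G2/M and mitosis, 0 rose and 22 fell of 34 tested (34 listed), with a median log2 fold change of -1.05. 14 fell without VEH 1, 12 without VEH 2 and 13 without VEH 3. Mki67, the marker of cycling cells, had 162, 131, 105 and 211 CPM in VEH 1 to VEH 4, against 445, 939, 418, 459 and 526 CPM in SPON 1 to SPON 5 (log2 fold change -1.91 ± 0.33 (SE), adjusted p 0.00294). Mad2l1, a spindle checkpoint protein, had 35.7 to 49.9 CPM in VEH and 84.7 to 225 CPM in SPON (log2 fold change -1.77 ± 0.31, adjusted p 0.00294). Of G1/S and DNA replication, 0 rose and 22 fell of 37 tested (37 listed), with a median log2 fold change of -0.94. 14 fell without VEH 2 or VEH 3. Rfc4, a subunit of the clamp loader, had 11.6 to 14.9 CPM in VEH and 32.5 to 61.2 CPM in SPON (log2 fold change -1.88 ± 0.25, adjusted p 0.000823). Prim1, the DNA primase catalytic subunit, had 11.5 to 21.2 CPM in VEH and 42.9 to 65.6 CPM in SPON (log2 fold change -1.77 ± 0.27, adjusted p 0.00153). Mcm7, a subunit of the replicative helicase, had 52.1 to 82.3 CPM in VEH and 149.6 to 184 CPM in SPON (log2 fold change -1.33 ± 0.21, adjusted p 0.00168). No member of these 3 lists rose. Of DNA repair and checkpoint genes, 0 rose and 11 fell of 28 tested (29 listed), with a median log2 fold change of -0.79. 7 fell without VEH 1 or VEH 4, 5 without VEH 2, 6 without VEH 3 and 17 without SPON 1 and SPON 5 together. Timeless, a fork protection protein, had 19.1 to 27.1 CPM in VEH and 43.1 to 78.5 CPM in SPON (log2 fold change -1.35 ± 0.23, adjusted p 0.00263). Exo1, an exonuclease, had 7.12 to 11.5 CPM in VEH and 16.7 to 42.3 CPM in SPON (log2 fold change -1.60 ± 0.32, adjusted p 0.00532).

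Cyclin E transcripts themselves were not called. Ccne1 had 15.2, 9.9, 10.4 and 17.6 CPM in VEH 1 to VEH 4, against 12.7, 2.63, 9.4, 7.36 and 2.53 CPM in SPON 1 to SPON 5 (log2 fold change 0.90 ± 0.50 (SE), adjusted p 0.203). Ccne2 had 8.04, 8.31, 7.46 and 14.1 CPM in VEH 1 to VEH 4, against 5.76, 2.79, 6.81, 8.72 and 5.85 CPM in SPON 1 to SPON 5 (log2 fold change 0.63 ± 0.38, adjusted p 0.237). A transgene of another species, if present, need not be counted under the mouse gene. Of cyclin E, CDK2 and their regulators, 0 rose and 6 fell of 16 tested (16 listed), with a median log2 fold change of -0.74. 2 fell without VEH 1, VEH 4 or SPON 5, 0 without VEH 2 or VEH 3 and 3 without SPON 3. With no filter on low counts 2 fell. Cks1b, a CDK-binding protein, had 43.6 to 81 CPM in VEH and 99 to 241 CPM in SPON (log2 fold change -1.26 ± 0.32, adjusted p 0.0151, and adjusted p 0.0511 to 0.0607 without VEH 2, VEH 3 or VEH 4). Ccna2, cyclin A2, had 66.5 to 111 CPM in VEH and 101 to 265 CPM in SPON (log2 fold change -1.06 ± 0.28, adjusted p 0.0203, and adjusted p 0.0723 without VEH 2 and adjusted p 0.0699 without VEH 3). Rbl1, the pocket protein p107, had 23.5 to 38 CPM in VEH and 33.1 to 63.4 CPM in SPON (log2 fold change -0.79 ± 0.25, adjusted p 0.0393, and adjusted p 0.0543 to 0.125 without VEH 1, VEH 2, VEH 3, SPON 2, SPON 3 or SPON 5). Each of these calls was lost without some single libraries.

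Cyclins D1 and D2 were higher in VEH. Of INK4, ARF and D cyclins, 4 rose and 0 fell of 9 tested (9 listed), with a median log2 fold change of 0.99. 2 rose without VEH 4. Ccnd2, cyclin D2, had 193, 174, 138 and 165 CPM in VEH 1 to VEH 4, against 17.7, 4.65, 15.9, 6.65 and 10.04 CPM in SPON 1 to SPON 5 (log2 fold change 3.88 ± 0.40 (SE), adjusted p 0.000222). Ccnd1, cyclin D1, had 462, 470.2, 414 and 633 CPM in VEH 1 to VEH 4, against 210.4, 100.1, 34.3, 238 and 111 CPM in SPON 1 to SPON 5 (log2 fold change 1.79 ± 0.47, adjusted p 0.0184, and adjusted p 0.0536 without VEH 4). The groups did not overlap for either gene. Ccnd3, cyclin D3, had 143 to 194 CPM in VEH and 83.7 to 187 CPM in SPON (log2 fold change 0.41 ± 0.25, adjusted p 0.233). Cdkn2b, the inhibitor p15, had 48.5 to 100.1 CPM in VEH and 9.6 to 37 CPM in SPON (log2 fold change 1.66 ± 0.41, adjusted p 0.0138). Cdkn2a, which encodes p16 and ARF, had 377 to 455 CPM in VEH and 43 to 351 CPM in SPON (log2 fold change 0.99 ± 0.49, adjusted p 0.154). Cdkn1a, the inhibitor p21, had 55.6 to 76.1 CPM in VEH and 18.4 to 48.8 CPM in SPON, with no overlap (log2 fold change 0.90 ± 0.31, adjusted p 0.0525, and adjusted p 0.0302 without SPON 1 and adjusted p 0.0268 without SPON 4). Trp53 had 22.2, 20.2, 36.6 and 25.1 CPM in VEH 1 to VEH 4, against 3.58, 30.9, 37.4, 2.39 and 47.2 CPM in SPON 1 to SPON 5 (log2 fold change 0.05 ± 0.76, adjusted p 0.968, and -0.15 without VEH 3, -0.23 without SPON 1 and -0.25 without SPON 4). SPON 1 and SPON 4 held the least Trp53 transcript of the 9 libraries. The sign of its fold change turned without either one and without VEH 3. Of p53 targets, 4 rose and 3 fell of 27 tested (27 listed), with a median log2 fold change of 0.05. These shares lie near those over all genes tested, 13.6% higher and 14.5% lower. 7 rose without SPON 4 and 7 without VEH 1, SPON 1 and SPON 4 together. 1 fell without any 1 VEH library, SPON 2 or SPON 3. Eda2r, a TNF receptor family member, had 3.32 to 11.1 CPM in VEH and 0 to 0.311 CPM in SPON (log2 fold change 5.15 ± 0.69, adjusted p 0.000874). Eda2r is near 0 in SPON and passed the filter on low counts through VEH, so it had to differ, and the 4 that rose include it. Sesn1, sestrin 1, had 39.9 to 56.9 CPM in VEH and 12.1 to 22.6 CPM in SPON (log2 fold change 1.60 ± 0.25, adjusted p 0.00172). Psrc1, a spindle protein, had 2.17 to 8.23 CPM in VEH and 11.8 to 289.8 CPM in SPON (log2 fold change -4.63 ± 0.90, adjusted p 0.00502, and -3.80 without SPON 5).

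Macrophage genes were higher in VEH. Of macrophages, 17 rose and 0 fell of 24 tested (24 listed), with a median log2 fold change of 1.76, and their summed level was 8919 to 12104 CPM in VEH and 2187 to 5455 CPM in SPON. Adgre1, the mouse macrophage marker F4/80, had 59.2, 59.1, 59.7 and 67.1 CPM in VEH 1 to VEH 4, against 3.66, 6.51, 9.12, 7.55 and 5.3 CPM in SPON 1 to SPON 5 (log2 fold change 3.21 ± 0.27 (SE), adjusted p 9.20e-05). Mrc1, the mannose receptor CD206, had 389, 397, 191 and 351 CPM in VEH 1 to VEH 4, against 6.93, 27.1, 17.8, 9.94 and 23.7 CPM in SPON 1 to SPON 5 (log2 fold change 4.23 ± 0.44, adjusted p 0.000245). Fcgr3, an Fc receptor, had 99.7 to 136 CPM in VEH and 12.9 to 27.4 CPM in SPON (log2 fold change 2.51 ± 0.23, adjusted p 0.00014). The 3 genes separated the groups in all 9 libraries. They were named for the smallest p of the list, so this separation follows from how they were picked. Of inflammatory cytokines, 10 rose and 2 fell of 23 tested (25 listed), with a median log2 fold change of 1.96. Csf1, the macrophage growth factor, had 293 to 404 CPM in VEH and 34 to 69.6 CPM in SPON (log2 fold change 2.93 ± 0.25, adjusted p 9.70e-05). Ccl2 (44.8 to 157 CPM in VEH and 1.56 to 9.3 CPM in SPON; log2 fold change 4.51 ± 0.57, adjusted p 0.00068) and Ccl7 (55.5 to 137 CPM in VEH and 0.949 to 6.46 CPM in SPON; log2 fold change 4.80 ± 0.61, adjusted p 0.000669) are monocyte chemokines. Il33, an alarmin, had 38.9 to 239 CPM in VEH and 1.74 to 18.4 CPM in SPON (log2 fold change 4.16 ± 0.85, adjusted p 0.00628, and 5.05 without SPON 1). Ccl20, a chemokine of epithelia, fell, with 0 to 0.457 CPM in VEH and 0.258 to 40.1 CPM in SPON (log2 fold change -6.17 ± 1.67, adjusted p 0.0209, and -8.32 without VEH 1 and adjusted p 0.0618 to 0.0657 without VEH 2, VEH 3 or VEH 4).

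Some genes known from osteoclasts, the bone-resorbing cells of the macrophage lineage, were picked after their values were seen, so they carry no count and stand for no list. Ctsk, cathepsin K, had 454, 667, 1893 and 424 CPM in VEH 1 to VEH 4, against 1.95, 10.2, 8.58, 5.23 and 9.02 CPM in SPON 1 to SPON 5 (log2 fold change 6.90 ± 0.68 (SE), adjusted p 0.000195, and 6.17 without VEH 3). Acp5, tartrate-resistant acid phosphatase, had 578, 739, 2529 and 547 CPM in VEH 1 to VEH 4, against 109, 69.95, 52.9, 70.3 and 140.0 CPM in SPON 1 to SPON 5 (log2 fold change 3.59 ± 0.55, adjusted p 0.00158, and 2.77 without VEH 3). VEH 3 held the most of both. The fusion genes Ocstamp (21.2 to 63.9 CPM in VEH and 0.0791 to 0.62 CPM in SPON; log2 fold change 6.85 ± 0.61, adjusted p 0.000121) and Dcstamp (14.4 to 38.4 CPM in VEH and 0.452 to 2.52 CPM in SPON; log2 fold change 4.52 ± 0.60, adjusted p 0.000815, and 5.20 without SPON 3) rose. So did Nfatc1, the transcription factor of this lineage (99.1 to 399.7 CPM in VEH and 9.49 to 29.97 CPM in SPON; log2 fold change 3.33 ± 0.49, adjusted p 0.00135, and 2.72 without VEH 3), and Tnfsf11, the ligand RANKL (10.7 to 43.7 CPM in VEH and 0.0791 to 2.96 CPM in SPON; log2 fold change 4.73 ± 0.92, adjusted p 0.00484, and 6.02 without SPON 1). Its receptor Tnfrsf11a had 29.2 to 78 CPM in VEH and 4.98 to 35.7 CPM in SPON (log2 fold change 0.96 ± 0.52, adjusted p 0.188). Oscar, an osteoclast receptor, had 6.5 to 28.8 CPM in VEH and 0 to 0.103 CPM in SPON and was 544-fold higher in VEH (95% counting interval 150.1 to 4497), adjusted p 0.000218, and at least 269-fold higher without SPON 2.

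Of neutrophils, 4 rose and 1 fell of 13 tested (16 listed), with a median log2 fold change of 1.14. 2 rose without VEH 1 or VEH 2. Their summed level overlapped, with 860.2 to 2215 CPM in VEH and 443 to 7789.5 CPM in SPON. S100a8, a calgranulin abundant in neutrophils, had 2.42 to 20.5 CPM in VEH and 1.97 to 31.8 CPM in SPON (log2 fold change 0.01 ± 0.94, adjusted p 0.995, and -0.07 without VEH 1, -0.28 without VEH 2, -0.01 without VEH 4, 0.74 without SPON 1, -0.27 without SPON 2, -0.27 without SPON 3 and -0.24 without SPON 5). Its partner S100a9 had 2.49 to 15.4 CPM in VEH and 1.66 to 28.3 CPM in SPON (log2 fold change 0.41 ± 0.88, adjusted p 0.755, and 1.80 without SPON 1). Lcn2, lipocalin 2 of neutrophils and epithelia, was the member that fell, with 28.5 to 755 CPM in VEH and 332 to 7652 CPM in SPON (log2 fold change -4.05 ± 1.25, adjusted p 0.035, and -6.27 without VEH 1 and adjusted p 0.0533 to 0.101 without VEH 2, VEH 3, VEH 4, SPON 1 or SPON 2). It made up most of the sum in each SPON library. Mmp9, gelatinase B, which macrophages and osteoclasts also make, had 1085, 1379, 2114 and 714 CPM in VEH 1 to VEH 4, against 5.68, 9.66, 1.29, 13.8 and 2.37 CPM in SPON 1 to SPON 5 (log2 fold change 7.62 ± 0.77 (SE), adjusted p 0.000218). Trem1, a myeloid receptor, had 2.83 to 15 CPM in VEH and 0.475 to 3.16 CPM in SPON (log2 fold change 2.96 ± 0.65, adjusted p 0.0084, and 3.62 without SPON 4). Il1b, interleukin 1 beta, had 7.12 to 36.3 CPM in VEH and 1.7 to 8.79 CPM in SPON (log2 fold change 2.20 ± 0.62, adjusted p 0.0256, and adjusted p 0.0674 without VEH 1 and adjusted p 0.0948 without VEH 2). Of dendritic cells, 4 rose and 0 fell of 10 tested (15 listed), with a median log2 fold change of 1.54. 2 rose without VEH 1 or VEH 2 and 7 without SPON 1 and SPON 5 together. Clec10a, a lectin shared with macrophages, had 18 to 34.2 CPM in VEH and 0.311 to 4.75 CPM in SPON (log2 fold change 3.88 ± 0.72, adjusted p 0.00402, and 4.73 without SPON 5). Ccr7, a homing receptor, had 1.66 to 4.26 CPM in VEH and 0.0778 to 0.817 CPM in SPON (log2 fold change 2.88 ± 0.65, adjusted p 0.010). Ccl22, a chemokine of dendritic cells and macrophages, had 1.8 to 7.8 CPM in VEH and 0 to 1.08 CPM in SPON (log2 fold change 3.15 ± 0.83, adjusted p 0.0194, and adjusted p 0.0506 without VEH 1 and adjusted p 0.0618 without VEH 2).

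Of 10 mast cell genes listed, 4 passed the filter on low counts. Tpsab1, Tpsb2 and Mcpt4 are near 0 in SPON and passed it through VEH, so no count of calls is given. With limma voom and quality weights none of these 3 was called. Tpsab1 and Tpsb2 encode near-identical tryptases, and how reads were split between them is uncertain. Tpsab1 had 49.2, 46.3, 15.1 and 4.43 CPM in VEH 1 to VEH 4, against 0, 0, 0.0681, 0 and 0.0791 CPM in SPON 1 to SPON 5 and was 1090.1-fold higher in VEH (95% counting interval 301 to 9008), adjusted p 0.000259, and 1753-fold higher without SPON 3 and 1813-fold higher without SPON 5. Tpsb2 had 1.79 to 27.2 CPM in VEH and 0 to 0.712 CPM in SPON (log2 fold change 6.59 ± 1.36 (SE), adjusted p 0.00637, and 10.69 without SPON 5). Mcpt4, a chymase, had 0.857 to 16.3 CPM in VEH and 0 to 0.194 CPM in SPON (log2 fold change 7.27 ± 1.13, adjusted p 0.00172, and 8.53 without SPON 4). VEH 1 and VEH 2 held the most Tpsab1. Kit, a receptor that mammary luminal progenitors also make, fell, with 10.7 to 51.4 CPM in VEH and 75.9 to 465 CPM in SPON (log2 fold change -3.20 ± 0.61, adjusted p 0.0046, and -3.82 without VEH 1). Il1rl1, the receptor of interleukin 33 found on mast cells and other leukocytes, had 255, 126, 52.3 and 170.1 CPM in VEH 1 to VEH 4, against 0.156, 0.827, 0.0681, 0 and 0.0791 CPM in SPON 1 to SPON 5 (log2 fold change 9.15 ± 0.88, adjusted p 0.000163, and 10.81 without SPON 2). Il1rl1 is near 0 in SPON and passed the filter on low counts through VEH, so it had to differ.

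T cell genes gave no call in the edgeR fit of all 9 libraries. Of T cells, 0 rose and 0 fell of 15 tested (22 listed), with a median log2 fold change of 0.13, and 7 more members did not pass the filter on low counts. In that fit 1 member had an unadjusted p under 0.05. Without SPON 3, 1 rose. With DESeq2's Wald test 3 rose, with limma voom 1, with no filter on low counts 2 and in 1 fit over the 32 grouped libraries 3. Lat, a signalling adaptor, had 3.07 to 9.54 CPM in VEH and 0.311 to 3.34 CPM in SPON (log2 fold change 1.96 ± 0.67 (SE), adjusted p 0.052, and 2.62 and adjusted p 0.0156 without SPON 3). Cd8a had 0.289 to 0.929 CPM in VEH and 0 to 5.58 CPM in SPON (log2 fold change -1.54 ± 1.18, adjusted p 0.349). Cd2 had 0.429 to 1.08 CPM in VEH and 0 to 0.817 CPM in SPON (log2 fold change 0.99 ± 0.82, adjusted p 0.393). The summed level of the list was 22 to 41.2 CPM in VEH and 8.46 to 53.4 CPM in SPON.

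Of 16 NK and cytotoxic cell genes listed, 6 passed the filter on low counts. Prf1 is near 0 in SPON and passed it through VEH, so no count of calls is given. With limma voom none of the 6 rose, with or without quality weights. Prf1, perforin, had 41.9, 47, 1.87 and 1.43 CPM in VEH 1 to VEH 4, against 0, 0.31, 0.749, 0.0646 and 0.316 CPM in SPON 1 to SPON 5 (log2 fold change 6.23 ± 1.27, adjusted p 0.00624, and 5.62 without VEH 2 and 6.90 without SPON 3). Gzmb had 1.07 to 15 CPM in VEH and 0 to 4.7 CPM in SPON (log2 fold change 2.60 ± 1.18, adjusted p 0.125, and 4.11 and adjusted p 0.0286 without SPON 3) and the chemokine Ccl5 had 3.61 to 5.39 CPM in VEH and 1.34 to 81.2 CPM in SPON (log2 fold change -2.29 ± 0.99, adjusted p 0.109, and -0.78 without SPON 3 and adjusted p 0.0435 without SPON 2). Granzymes of the same chromosome cluster, which share sequence, were among the genes that rose most. Gzmf had 2.64 to 151 CPM in VEH and 0 to 0.934 CPM in SPON (log2 fold change 8.49 ± 1.53, adjusted p 0.00348, and 10.87 without SPON 1). Gzmg had 129, 137, 6.08 and 1.93 CPM in VEH 1 to VEH 4, against 0, 0.0517, 0, 0 and 0 CPM in SPON 1 to SPON 5 and was 5202-fold higher in VEH (95% counting interval 933 to 205503), adjusted p 0.00114, and at least 1287-fold higher without SPON 2. VEH 1 and VEH 2 held the most Prf1 and Gzmg. Gzmf and Gzmg are at or near 0 in SPON and passed the filter on low counts through VEH, so they had to differ. Of B cells and plasma cells, 1 rose and 1 fell of 4 tested (16 listed), with a median log2 fold change of 0.35. Bank1, a B cell adaptor, had 0.8293 to 2.36 CPM in VEH and 0.0646 to 0.475 CPM in SPON (log2 fold change 2.01 ± 0.60, adjusted p 0.0301, and adjusted p 0.0511 to 0.114 without any 1 VEH library). Bank1, the 1 member that rose, is near 0 in SPON and passed the filter on low counts through VEH, so it had to differ. Igkc, the kappa constant region, had 1.18, 2.38, 1.04 and 0.572 CPM in VEH 1 to VEH 4, against 0.778, 0.465, 237, 3.81 and 80.9 CPM in SPON 1 to SPON 5 (log2 fold change -5.68 ± 1.81, adjusted p 0.0404, and -4.14 without SPON 3 and adjusted p 0.0619 to 0.107 without any 1 VEH library, SPON 3 or SPON 5). Cd22 had 4.22 to 6.0 CPM in VEH and 0.70 to 5.69 CPM in SPON (log2 fold change 1.11 ± 0.63, adjusted p 0.213, and 1.77 and adjusted p 0.0418 without SPON 5).

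Of interferon-stimulated genes, 3 rose and 1 fell of 42 tested (42 listed), with a median log2 fold change of -0.16. Both shares lie below those over all genes tested, 13.6% higher and 14.5% lower. 1 rose without VEH 1, VEH 3 or VEH 4, 0 without VEH 2 and 5 without SPON 3. Gbp2 (75.4 to 117 CPM in VEH and 8.46 to 50.1 CPM in SPON; log2 fold change 1.65 ± 0.42, adjusted p 0.0157, and adjusted p 0.0525 without VEH 2) and Gbp7 (35.5 to 48.8 CPM in VEH and 5.46 to 24.7 CPM in SPON; log2 fold change 1.22 ± 0.36, adjusted p 0.0309, and adjusted p 0.0541 to 0.0869 without any 1 VEH library) encode guanylate-binding proteins. Irgm1, an immunity GTPase, had 25.6 to 28.4 CPM in VEH and 22.5 to 104 CPM in SPON (log2 fold change -1.39 ± 0.37, adjusted p 0.0185, and adjusted p 0.0533 to 0.0622 without VEH 2, VEH 3 or VEH 4). Of MHC class I and II, 3 rose and 3 fell of 22 tested (23 listed), with a median log2 fold change of -0.46. These shares lie near those over all genes tested. 1 rose without VEH 2, VEH 3 or VEH 4. H2-DMa (16.6 to 23.2 CPM in VEH and 5.87 to 11 CPM in SPON; log2 fold change 1.01 ± 0.28, adjusted p 0.0221, and adjusted p 0.0533 to 0.0853 without VEH 2, VEH 3 or VEH 4) and H2-DMb1 (4.72 to 7.73 CPM in VEH and 1.36 to 2.41 CPM in SPON; log2 fold change 1.61 ± 0.37, adjusted p 0.0102) load peptides onto class II. H2-Q6, a nonclassical class I gene with close copies, had 9.15 to 14.7 CPM in VEH and 20.1 to 243 CPM in SPON (log2 fold change -2.82 ± 0.75, adjusted p 0.0197, and -1.87 without SPON 3 and adjusted p 0.0562 to 0.063 without VEH 2, VEH 3 or VEH 4). Without SPON 1 and SPON 5 together, 8 MHC members and 5 interferon-stimulated members fell. No more than 1 MHC member fell without any 1 VEH library. Without SPON 1, 4 interferon-stimulated members fell.

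Of endothelium, 12 rose and 0 fell of 20 tested (20 listed), with a median log2 fold change of 1.15. 7 rose without VEH 1, VEH 4 or SPON 4, 5 without VEH 2 and 5 without VEH 1, SPON 1 and SPON 4 together. Plvap, of fenestrated vessels, had 92.9 to 116 CPM in VEH and 43 to 63.1 CPM in SPON (log2 fold change 0.98 ± 0.18 (SE), adjusted p 0.00343). Vwf, von Willebrand factor, had 10.6 to 29.5 CPM in VEH and 1.23 to 4.75 CPM in SPON (log2 fold change 2.79 ± 0.50, adjusted p 0.00355). Flt1, a VEGF receptor, had 69.6 to 79.2 CPM in VEH and 24.4 to 44.5 CPM in SPON (log2 fold change 1.15 ± 0.22, adjusted p 0.00414). Of pericytes and smooth muscle, 5 rose and 0 fell of 13 tested (13 listed), with a median log2 fold change of 0.32. Those that rose were Cspg4, Pdgfrb, Myh11, Acta2 and Cnn1. Myh11, Acta2 and Cnn1 also belong to the basal and myoepithelial list, and Pdgfrb to the fibroblast list. Not called were Rgs5 (log2 fold change -0.68), Notch3 (-0.71), Kcnj8 (-0.01), Des (-1.09), Higd1b (-1.29), Ndufa4l2 (-0.54), Mcam (0.40) and Abcc9 (0.32). Pdgfrb had 182 to 465 CPM in VEH and 35.5 to 106 CPM in SPON (log2 fold change 2.38 ± 0.41, adjusted p 0.00276). Fibroblasts share this receptor. Of adipocytes, 0 rose and 3 fell of 11 tested (18 listed), with a median log2 fold change of -1.38. Cidea, a lipid droplet protein of brown fat and lactating gland, had 0.0653, 0.0722, 0 and 0.0715 CPM in VEH 1 to VEH 4, against 1.4, 9.51, 5.99, 4.33 and 2.37 CPM in SPON 1 to SPON 5 and was 99.1-fold lower in VEH (95% counting interval 33.6 to 482), adjusted p 0.000863. Cidea passed the filter on low counts through SPON, so it had to differ, and the 3 that fell include it. Pnpla2, a triglyceride lipase, had 30.7 to 46.9 CPM in VEH and 70.1 to 176 CPM in SPON (log2 fold change -1.63 ± 0.28, adjusted p 0.00306). Gpd1 had 1.88 to 5.18 CPM in VEH and 4.44 to 81.6 CPM in SPON (log2 fold change -3.40 ± 0.97, adjusted p 0.0264, and adjusted p 0.0524 to 0.0833 without any 1 VEH library or SPON 5). Of nerve and Schwann cells, 2 rose and 3 fell of 11 tested (12 listed), with a median log2 fold change of -1.14. Ncmap, a myelin protein, had 0.261 to 3.14 CPM in VEH and 18.1 to 35.1 CPM in SPON (log2 fold change -4.35 ± 0.64, adjusted p 0.00129, and -5.04 without VEH 4). Pmp22, also a myelin protein but made by fibroblasts as well, had 97.7 to 163 CPM in VEH and 5.94 to 42.4 CPM in SPON (log2 fold change 2.47 ± 0.48, adjusted p 0.00516). Sox10, described with the basal genes, belongs to this list too.

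Some of the largest falls were in genes of secreted proteins. Dcpp1, a secreted protein of mouse salivary gland with the near-identical copy Dcpp2, had 0.0653, 0, 0.0691 and 0 CPM in VEH 1 to VEH 4, against 1.79, 279, 1968, 34.9 and 11320.1 CPM in SPON 1 to SPON 5 and was 68332-fold lower in VEH (95% counting interval 18916 to 564247), adjusted p 0.00513, and 16093-fold lower without SPON 5. Dcpp2 had no count in VEH, against 0.311, 58.6, 146, 5.04 and 1656 CPM in SPON 1 to SPON 5 and was at least 6222-fold lower in VEH, adjusted p 0.0249 (0.0529 to 0.0564 without VEH 2, VEH 3 or VEH 4), and at least 1037-fold lower without SPON 5. SPON values of both spanned orders of magnitude, with the most in SPON 5. Of 14 lymph node and salivary gland genes listed, 6 passed the filter on low counts, and those at or near 0 in VEH passed it through SPON, so no count of calls is given. With limma voom none of the 6 fell. Lpo, lactoperoxidase, had 0.0653, 0, 0 and 0 CPM in VEH 1 to VEH 4, against 0, 29.6, 315, 4.84 and 48 CPM in SPON 1 to SPON 5 and was 4514-fold lower in VEH (95% counting interval 809.9 to 178329), adjusted p 0.0081, and at least 1105-fold lower without VEH 1 and 1198-fold lower without SPON 3. Bpifa2, a salivary protein, had no count in VEH, against 0, 0.775, 387, 13.3 and 32382 CPM in SPON 1 to SPON 5 and was at least 106304-fold lower in VEH, adjusted p 0.0491 (0.087 to 0.0992 without any 1 VEH library), and at least 1816-fold lower without SPON 5. Bpifb1, of the same protein family, had no count in VEH, against 15.8, 9.14, 526, 50.9 and 178 CPM in SPON 1 to SPON 5 and was at least 2854-fold lower in VEH, adjusted p 0.00628, and at least 1089-fold lower without SPON 3. The list summed to 1.29 to 5.67 CPM in VEH and 4.75 to 45482 CPM in SPON, with 7 of 13 members at 0 in every VEH library. Whether gland tissue beside the tumour contributed was not tested.

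Pigr, which carries immunoglobulin A across epithelia, had 0.0653, 0, 0.0691 and 0 CPM in VEH 1 to VEH 4, against 2.65, 27.7, 1254, 17.9 and 2749 CPM in SPON 1 to SPON 5 and was 20737-fold lower in VEH (95% counting interval 5740.3 to 171237), adjusted p 0.00543, and 8893-fold lower without SPON 5. Tesc, a calcium-binding protein, had 0 to 0.0722 CPM in VEH and 3.03 to 936 CPM in SPON and was 8149-fold lower in VEH (95% counting interval 2256 to 67291), adjusted p 0.0037, and 12382-fold lower without VEH 2 and 4334-fold lower without SPON 5. Chit1, a chitinase, had no count in VEH and 1.45 to 196 CPM in SPON and was at least 869-fold lower in VEH, adjusted p 0.0124, and at least 283-fold lower without SPON 5. Among the other large falls, Cftr, the chloride channel of epithelia, had 0.0653, 0, 0 and 0.214 CPM in VEH 1 to VEH 4, against 1.79, 3.82, 1.63, 220.1 and 6.72 CPM in SPON 1 to SPON 5 (log2 fold change -9.23 ± 2.23 (SE), adjusted p 0.013, and -10.53 without VEH 4 and -5.55 without SPON 4). SPON 4 held most of it. Car6, a secreted carbonic anhydrase, had 0.214 to 1.3 CPM in VEH and 6.58 to 876 CPM in SPON (log2 fold change -8.59 ± 1.82, adjusted p 0.00731, and -9.38 without VEH 2 and -6.42 without SPON 2). Tex15 had 0 to 0.622 CPM in VEH and 1.63 to 145 CPM in SPON (log2 fold change -8.13 ± 1.97, adjusted p 0.0131, and -10.64 without VEH 3 and -7.22 without SPON 3). Apoc1, an apolipoprotein, had 0.0722 to 0.8293 CPM in VEH and 1.36 to 422 CPM in SPON (log2 fold change -8.08 ± 1.49, adjusted p 0.00387, and -7.09 without SPON 5). Cnmd, chondromodulin of cartilage, had 0 to 0.261 CPM in VEH and 1.66 to 82.7 CPM in SPON (log2 fold change -8.04 ± 1.76, adjusted p 0.00841, and -11.18 without VEH 1 and -5.81 without SPON 3).

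Among the largest rises, Grem1, a secreted BMP inhibitor, had 481, 574, 251.1 and 174 CPM in VEH 1 to VEH 4, against 0, 1.08, 0.0681, 0.646 and 0 CPM in SPON 1 to SPON 5 (log2 fold change 9.82 ± 1.001 (SE), adjusted p 0.00022, and 10.81 without SPON 2). Cryaa, a crystallin chaperone of the lens, had 73, 58.4, 2.83 and 4.36 CPM in VEH 1 to VEH 4, against no count in SPON and was at least 880.4-fold higher in VEH, adjusted p 0.00603, and at least 539-fold higher without VEH 1. Grid1, a glutamate receptor family member, had 4.63 to 17 CPM in VEH and no count in SPON and was at least 244-fold higher in VEH, adjusted p 0.000943. Kcna4, a potassium channel, had 7.29 to 22.9 CPM in VEH and 0 to 0.155 CPM in SPON (log2 fold change 8.29 ± 0.87, adjusted p 0.000245, and 10.69 without SPON 2). Popdc3 had 2.53 to 10.3 CPM in VEH and 0 to 0.0517 CPM in SPON and was 445-fold higher in VEH (95% counting interval 79.4 to 17643), adjusted p 0.000252, and at least 110.2-fold higher without SPON 2. All 5 were at or near 0 in SPON.

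Growth factor signalling genes were called in both directions, as were the genes tested as a whole, with 13.6% higher and 14.5% lower. The counts here and in the following paragraphs are to be read against these shares. Of ErbB receptors and ligands, 3 rose and 4 fell of 12 tested (15 listed), with a median log2 fold change of -1.29. 2 fell without VEH 2, VEH 3, VEH 4 or SPON 3. The ligands Ereg (55.3 to 231 CPM in VEH and 0.0681 to 6.22 CPM in SPON; log2 fold change 6.04 ± 1.01, adjusted p 0.00251, and 7.42 without SPON 1) and Epgn (3.5 to 21.3 CPM in VEH and 0.34 to 1.48 CPM in SPON; log2 fold change 4.17 ± 0.70, adjusted p 0.00245) and their receptor Egfr (49.7 to 65.6 CPM in VEH and 7.91 to 36 CPM in SPON; log2 fold change 1.53 ± 0.38, adjusted p 0.0138) rose. Erbb3 fell, with 2.76 to 46.3 CPM in VEH and 134 to 602 CPM in SPON (log2 fold change -4.11 ± 0.97, adjusted p 0.0117, and -5.84 without VEH 1 and -3.49 without SPON 2), as Erbb2 did. Of FGF, PDGF, MET, AXL and IGF receptors and ligands, 7 rose and 2 fell of 21 tested (24 listed), with a median log2 fold change of 0.84. Hgf, the ligand of MET, had 38.4, 43.1, 27.2 and 42.7 CPM in VEH 1 to VEH 4, against 0.856, 0.31, 0.408, 0.129 and 0.0791 CPM in SPON 1 to SPON 5 (log2 fold change 6.67 ± 0.57 (SE), adjusted p 9.70e-05). Met had 1959, 2085, 1055 and 1884 CPM in VEH 1 to VEH 4, against 2303, 56.4, 104, 2553 and 158 CPM in SPON 1 to SPON 5 (log2 fold change 0.72 ± 1.02, adjusted p 0.63, and 1.34 without SPON 4). SPON 1 and SPON 4 lay above all VEH libraries. Axl, a receptor of mesenchymal and myeloid cells, had 355 to 551 CPM in VEH and 28 to 71.2 CPM in SPON (log2 fold change 3.17 ± 0.33, adjusted p 0.000245).

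Of TGF-beta and BMP, 9 rose and 2 fell of 30 tested (32 listed), with a median log2 fold change of 1.08. 14 rose without SPON 1, 16 without VEH 1, SPON 1 and SPON 4 together and 14 without SPON 1 and SPON 5 together. Tgfbr2, the type II receptor, had 358 to 519.9 CPM in VEH and 38.8 to 78.9 CPM in SPON (log2 fold change 2.84 ± 0.26 (SE), adjusted p 0.000124). Gdf10, a ligand of the family, had 3.93 to 36 CPM in VEH and 0 to 0.475 CPM in SPON (log2 fold change 6.85 ± 1.08, adjusted p 0.00188, and 7.72 without SPON 5). Gdf10 is near 0 in SPON and passed the filter on low counts through VEH, so it had to differ. Of Wnt, 10 rose and 2 fell of 30 tested (35 listed), with a median log2 fold change of 0.87. For both lists the share that fell lies below the 14.5% of all genes tested. Wnt5a, a noncanonical ligand, had 59.6 to 137 CPM in VEH and 0.395 to 9.94 CPM in SPON (log2 fold change 4.41 ± 0.76, adjusted p 0.00278). The inhibitors Notum (15.5 to 70.3 CPM in VEH and 0.413 to 4.67 CPM in SPON; log2 fold change 4.74 ± 0.79, adjusted p 0.0025, and 5.57 without SPON 1) and Dkk2 (22.5 to 48.9 CPM in VEH and 0.71 to 6.07 CPM in SPON; log2 fold change 3.82 ± 0.59, adjusted p 0.00172, and 4.54 without SPON 1) rose, while the inhibitor Wif1 fell, with 0 to 1.08 CPM in VEH and 1.74 to 13.3 CPM in SPON (log2 fold change -3.80 ± 1.05, adjusted p 0.0233, and -5.17 without VEH 2, -3.07 without SPON 2, adjusted p 0.0687 without VEH 1 and adjusted p 0.0729 without VEH 3).

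Of Notch, 4 rose and 1 fell of 18 tested (20 listed), with a median log2 fold change of 0.09. 2 rose without VEH 1, SPON 2 or SPON 3, 1 without VEH 2, VEH 3 or VEH 4 and 2 without SPON 1 and SPON 5 together. Notch4, an endothelial receptor, had 77.8 to 120.3 CPM in VEH and 16 to 57.3 CPM in SPON (log2 fold change 1.53 ± 0.38, adjusted p 0.0143). Lfng, a modifier of Notch, had 38.5 to 53.4 CPM in VEH and 6.88 to 28.2 CPM in SPON (log2 fold change 1.37 ± 0.42, adjusted p 0.0335, and adjusted p 0.0618 to 0.0866 without any 1 VEH library). Maml2, a coactivator, had 10.6 to 12.1 CPM in VEH and 17.7 to 38.9 CPM in SPON (log2 fold change -1.13 ± 0.30, adjusted p 0.0203, and adjusted p 0.0536 to 0.0696 without any 1 VEH library). Of Hedgehog, 1 rose and 1 fell of 11 tested (13 listed), with a median log2 fold change of 0.16. Both shares lie below those over all genes tested, 13.6% higher and 14.5% lower. Gas1, a co-receptor, had 158 to 626 CPM in VEH and 2.58 to 49.6 CPM in SPON (log2 fold change 4.68 ± 0.91, adjusted p 0.00496, and 5.75 without SPON 1). Dhh, the ligand of Schwann cells, had 0.196 to 0.857 CPM in VEH and 1.03 to 33.8 CPM in SPON (log2 fold change -4.25 ± 1.12, adjusted p 0.0191, and -2.696 without SPON 5 and adjusted p 0.0554 to 0.0605 without VEH 1, VEH 2 or VEH 3). Gli3, a transcription factor of the pathway, had 43.8 to 57.5 CPM in VEH and 1.36 to 41.9 CPM in SPON (log2 fold change 1.89 ± 0.74, adjusted p 0.0803, and 2.83 and adjusted p 0.00835 without SPON 4). Of YAP and TEAD targets, 5 rose and 0 fell of 16 tested (16 listed), with a median log2 fold change of 0.62. This list also holds the pathway's own factors Yap1, Wwtr1, Tead1 and Tead4. Those that rose were Ankrd1, Axl, Lats2, Tead1 and Wwtr1. The targets Ctgf (log2 fold change 0.78, adjusted p 0.407) and Cyr61 (0.63, adjusted p 0.468) were not called. Ankrd1 had 40.2 to 81.7 CPM in VEH and 0.272 to 11.2 CPM in SPON (log2 fold change 3.81 ± 0.89, adjusted p 0.0111, and 4.70 without SPON 1). Lats2, a kinase that restrains YAP, had 30.1 to 40.8 CPM in VEH and 12.7 to 22.2 CPM in SPON (log2 fold change 0.99 ± 0.24, adjusted p 0.0134).

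Of the MYC family, 1 rose and 5 fell of 12 tested (12 listed), with a median log2 fold change of -0.69. 2 fell without any 1 VEH library. Myc itself (log2 fold change -0.05, adjusted p 0.911) and Max (0.06, adjusted p 0.845) were not called. Those that fell were Mycn, Mycl, Pim2, Pim3 and Ncl, as the list also holds genes that are not MYC paralogs. Pim3 (54.3 to 83.6 CPM in VEH and 142 to 183 CPM in SPON; log2 fold change -1.21 ± 0.19, adjusted p 0.0018) and Pim2 (3.46 to 4.7 CPM in VEH and 9.96 to 15.7 CPM in SPON; log2 fold change -1.72 ± 0.29, adjusted p 0.00272) encode kinases that act with MYC, and Mxd4, a MYC antagonist, rose with 97.7 to 143 CPM in VEH and 40.1 to 88.1 CPM in SPON (log2 fold change 0.94 ± 0.25, adjusted p 0.0188, and adjusted p 0.0585 without VEH 2 and adjusted p 0.058 without VEH 3). Of hypoxia and glycolysis, 7 rose and 4 fell of 31 tested (31 listed), with a median log2 fold change of 0.01. 2 fell without any 1 VEH library, SPON 1 or SPON 5. Over all genes tested 13.6% were higher and 14.5% lower, and the share of this list that fell lies near the latter. Pfkl, a phosphofructokinase subunit, had 248 to 302 CPM in VEH and 459 to 649 CPM in SPON (log2 fold change -1.03 ± 0.21, adjusted p 0.00644). Pfkfb4 (19.7 to 31.4 CPM in VEH and 3.08 to 12.8 CPM in SPON; log2 fold change 1.92 ± 0.40, adjusted p 0.00676) and P4ha2, a collagen prolyl hydroxylase (97.5 to 126 CPM in VEH and 18.8 to 52.3 CPM in SPON; log2 fold change 1.31 ± 0.29, adjusted p 0.0088), rose.

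Of NRF2 targets and glutathione, 4 rose and 1 fell of 20 tested (22 listed), with a median log2 fold change of 0.58. 8 rose without SPON 1 and SPON 5 together. Over all genes tested 13.6% were higher and 14.5% lower. Srxn1, sulfiredoxin, had 99.2 to 139 CPM in VEH and 8.71 to 22.4 CPM in SPON (log2 fold change 2.87 ± 0.29 (SE), adjusted p 0.00022). Gpx8 had 42.4 to 57.3 CPM in VEH and 5.24 to 10.4 CPM in SPON (log2 fold change 2.66 ± 0.26, adjusted p 0.000185). Hmox1, heme oxygenase, had 178 to 257 CPM in VEH and 37 to 92.5 CPM in SPON (log2 fold change 1.79 ± 0.30, adjusted p 0.00239). Of lipid and cholesterol synthesis, 0 rose and 5 fell of 23 tested (23 listed), with a median log2 fold change of -0.41. 2 fell without VEH 1, VEH 2 or VEH 3, 3 without VEH 4 or SPON 5, 3 without VEH 1, SPON 1 and SPON 4 together and 3 without SPON 1 and SPON 5 together. Srebf1, the regulator of fatty acid synthesis, had 116 to 151 CPM in VEH and 209 to 523 CPM in SPON (log2 fold change -1.52 ± 0.29, adjusted p 0.00414). Fdft1, squalene synthase, had 29.5 to 43.1 CPM in VEH and 47.5 to 128 CPM in SPON (log2 fold change -1.11 ± 0.32, adjusted p 0.0266, and adjusted p 0.075 to 0.087 without VEH 1, VEH 2 or VEH 3).

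Some genes of energy supply and ribosomes fell in VEH, and these counts moved with the libraries used. Of oxidative phosphorylation genes encoded in the nucleus, 0 rose and 15 fell of 44 tested (44 listed), with a median log2 fold change of -0.83. 6 fell without VEH 1, 5 without VEH 2, VEH 3 or VEH 4, 9 without SPON 5 and 8 without SPON 1 and SPON 5 together. Ndufa4 had 81.8 to 119 CPM in VEH and 256 to 423 CPM in SPON (log2 fold change -1.69 ± 0.22 (SE), adjusted p 0.000823). Ndufa5 had 21.7 to 29.7 CPM in VEH and 63.7 to 222 CPM in SPON (log2 fold change -2.30 ± 0.36, adjusted p 0.00193). Atp5h had 35.1 to 54.3 CPM in VEH and 89.2 to 319.8 CPM in SPON (log2 fold change -1.96 ± 0.40, adjusted p 0.00628).

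Of mitochondrially encoded genes, 0 rose and 9 fell of 13 tested (13 listed), with a median log2 fold change of -2.57. 0 fell without any 1 VEH library, 1 without SPON 1 or SPON 5, 1 without VEH 1, SPON 1 and SPON 4 together and 1 without SPON 1 and SPON 5 together. With limma voom 2 fell, and with DESeq2's Wald test 13. The gene mt-Nd2 had 1063, 1016, 1645 and 1393 CPM in VEH 1 to VEH 4, against 14108, 3053, 2109, 1711 and 15274 CPM in SPON 1 to SPON 5 (log2 fold change -2.57 ± 0.77, adjusted p 0.0321, and adjusted p 0.0549 to 0.0978 without any 1 VEH library, SPON 1 or SPON 5). SPON 1 and SPON 5, the libraries with the high mitochondrial share, held most of it. Likewise mt-Atp6 had 7.91 to 10.9 CPM in VEH and 15 to 129.9 CPM in SPON (log2 fold change -2.699 ± 0.74, adjusted p 0.0227, and adjusted p 0.0583 to 0.0712 without any 1 VEH library). The gene mt-Co2 had 17 to 26.3 CPM in VEH and 29.1 to 385 CPM in SPON (log2 fold change -2.76 ± 0.83, adjusted p 0.0325, and -1.83 without SPON 5 and adjusted p 0.054 to 0.0936 without any 1 VEH library, SPON 1 or SPON 5). Of ribosomal proteins, 0 rose and 12 fell of 40 tested (40 listed), with a median log2 fold change of -0.84. 4 fell without VEH 1, 2 without VEH 2, VEH 3 or VEH 4, 6 without SPON 1, 23 without SPON 2, 5 without SPON 5, 6 without VEH 1, SPON 1 and SPON 4 together and 5 without SPON 1 and SPON 5 together. Rpl7 (551 to 648 CPM in VEH and 1322 to 1625 CPM in SPON; log2 fold change -1.31 ± 0.23, adjusted p 0.0034) and Rpl32 (498 to 634 CPM in VEH and 944 to 1889 CPM in SPON; log2 fold change -1.31 ± 0.28, adjusted p 0.00775) fell, as did Rpl18 (178 to 234 CPM in VEH and 313 to 718 CPM in SPON; log2 fold change -1.25 ± 0.31, adjusted p 0.0147, and adjusted p 0.0504 to 0.060 without VEH 2, VEH 3 or VEH 4). Of ribosome biogenesis, 0 rose and 3 fell of 30 tested (30 listed), with a median log2 fold change of -0.29. 1 fell without VEH 1 or VEH 4 and 0 without VEH 2 or VEH 3. This share lies below the 14.5% of all genes tested. With no filter on low counts 0 fell. Nop2 (74.6 to 79.5 CPM in VEH and 109 to 121 CPM in SPON; log2 fold change -0.63 ± 0.15, adjusted p 0.0126, and adjusted p 0.0514 to 0.0567 without VEH 2, VEH 3 or VEH 4), Nop58 (73.8 to 106 CPM in VEH and 106 to 149.6 CPM in SPON; log2 fold change -0.68 ± 0.20, adjusted p 0.0305, and adjusted p 0.0946 to 0.109 without VEH 1, VEH 2 or VEH 3) and Polr1b (28.6 to 35.7 CPM in VEH and 39.1 to 59.6 CPM in SPON; log2 fold change -0.64 ± 0.20, adjusted p 0.0362, and adjusted p 0.0621 to 0.121 without any 1 VEH library, SPON 3 or SPON 5) were these 3. The part of RNA quality in these differences was not tested.

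Of immediate early and heat shock genes, 3 rose and 2 fell of 18 tested (18 listed), with a median log2 fold change of -0.28. These shares lie near those over all genes tested, 13.6% higher and 14.5% lower. 1 rose without VEH 4 and 6 without VEH 1, SPON 1 and SPON 4 together. Ier2 had 58.1 to 101 CPM in VEH and 182 to 230.2 CPM in SPON (log2 fold change -1.40 ± 0.21 (SE), adjusted p 0.00135). The AP-1 subunits Fosl1 (89.8 to 172 CPM in VEH and 0.545 to 32.4 CPM in SPON; log2 fold change 3.56 ± 0.95, adjusted p 0.0203, and 4.63 without SPON 1 and adjusted p 0.051 without VEH 4) and Fosl2 (247 to 371 CPM in VEH and 44.7 to 160.1 CPM in SPON; log2 fold change 1.78 ± 0.38, adjusted p 0.00752) rose. Of erythroid genes, which mark blood, 0 rose and 0 fell of 4 tested (8 listed), with a median log2 fold change of 0.31. None was called with DESeq2's Wald test or limma voom, and 0 had an unadjusted p under 0.05 in edgeR. Hbb-bs had 75.1 to 592 CPM in VEH and 23.3 to 535 CPM in SPON (log2 fold change 0.77 ± 0.97, adjusted p 0.581, and 2.46 and adjusted p 0.0284 without SPON 5 and -0.01 without VEH 4). Hba-a1 had 110.0 to 795 CPM in VEH and 22.3 to 2472 CPM in SPON (log2 fold change -0.72 ± 1.29, adjusted p 0.709, and -1.46 without VEH 4 and 2.22 without SPON 5). Hbb-bt had 3.25 to 19.9 CPM in VEH and 0.516 to 28.6 CPM in SPON (log2 fold change 0.51 ± 1.13, adjusted p 0.766, and 2.64 and adjusted p 0.0459 without SPON 5). SPON 5 held more haemoglobin transcript than the other SPON libraries.

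SPON tumours differed from each other in several genes. These genes were picked after their values were seen. H19, an imprinted fetal RNA, had 39.9, 19.1, 86.2 and 119.8 CPM in VEH 1 to VEH 4, against 2679, 9.76, 3.47, 4672 and 139 CPM in SPON 1 to SPON 5 (log2 fold change -4.53 ± 1.83 (SE), adjusted p 0.089, and -3.49 without SPON 4 and adjusted p 0.0449 without SPON 3), high in SPON 1 and SPON 4. Bard1, the partner of BRCA1, had 18, 13.8, 11.9 and 16.8 CPM in VEH 1 to VEH 4, against 20.00, 22.6, 23.4, 191 and 16.1 CPM in SPON 1 to SPON 5 (log2 fold change -1.87 ± 0.75, adjusted p 0.0882, and -0.50 without SPON 4), high in SPON 4. Fgfr2, a growth factor receptor of epithelia, had 2.94, 3.4, 0.8293 and 0.929 CPM in VEH 1 to VEH 4, against 2.72, 4.8, 41.2, 0.581 and 5059 CPM in SPON 1 to SPON 5 (log2 fold change -9.06 ± 2.92, adjusted p 0.042, and -2.63 without SPON 5 and adjusted p 0.0933 to 0.127 without any 1 VEH library or SPON 5). Ctsd, cathepsin D, had 796, 848, 1292 and 852 CPM in VEH 1 to VEH 4, against 754, 449.6, 1090.3, 1028 and 41541 CPM in SPON 1 to SPON 5 (log2 fold change -3.33 ± 1.44, adjusted p 0.109, and 0.17 without SPON 5). SPON 5 held by far the most of Fgfr2 and Ctsd. Trf, transferrin, had 151, 56.1, 33.8 and 43.1 CPM in VEH 1 to VEH 4, against 1873, 8872, 133, 784 and 43.7 CPM in SPON 1 to SPON 5 (log2 fold change -5.09 ± 1.47, adjusted p 0.0276, and -5.74 without VEH 1, -3.38 without SPON 2 and adjusted p 0.0806 to 0.0843 without VEH 2, VEH 3 or VEH 4). SPON 2 held the most.

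**Figure D5:**
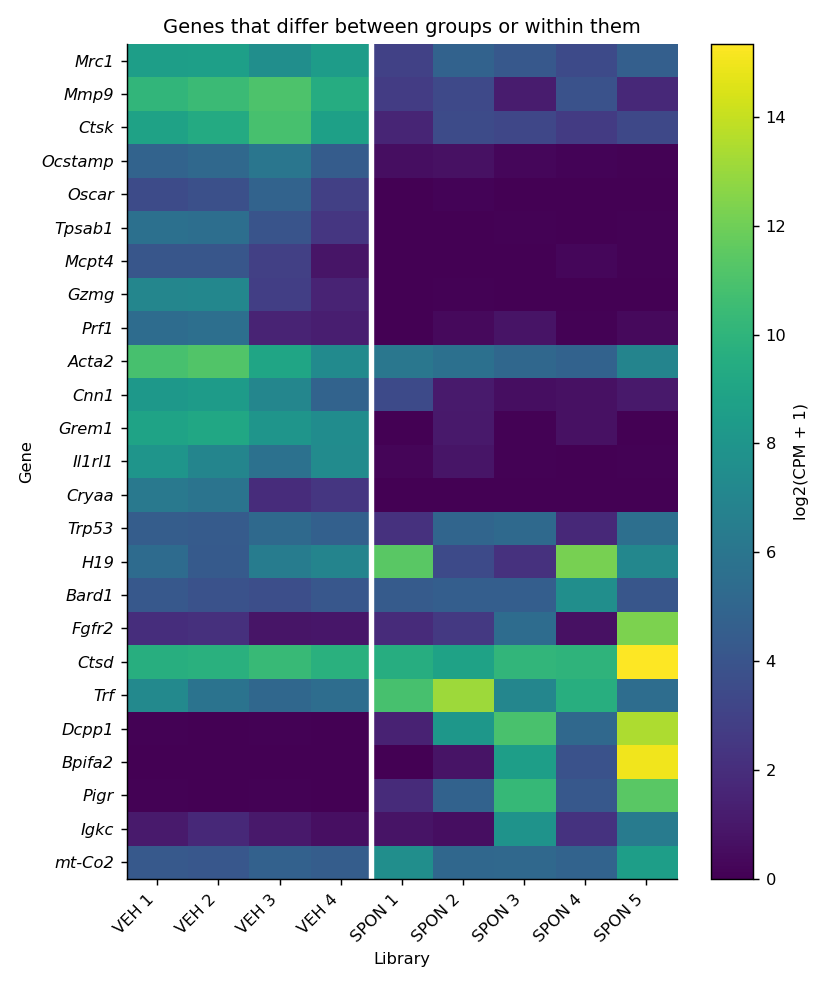
Level of 25 genes, as log2 of CPM plus 1, in the 4 VEH libraries (left of the white line) and the 5 SPON libraries (right of it), from dark (0) to yellow (highest). Mrc1, Ctsk, Tpsab1 and Gzmg are high in VEH and low in SPON, while H19, Bard1, Fgfr2, Ctsd, Trf and the secreted protein genes Dcpp1 and Bpifa2 are high in some SPON libraries.

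Levels in the other tumours of the series place the 2 groups. Epcam had 0.977 to 9.75 CPM in the 3 vehicle tumours titled _7 and 1.79 to 5.35 CPM in the 4 RP-6306 tumours titled _7, near or below VEH. In the 11 RP-6306 tumours without that suffix it had 969 to 1934 CPM, and in the 5 WT tumours 657 to 1145 CPM, near SPON. Vim had 4268 to 4564 CPM and 4084 to 4832 CPM in the vehicle and RP-6306 tumours titled _7, against 422 to 1260.3 CPM in RP-6306 tumours without the suffix and 149 to 371 CPM in WT tumours. By these 2 genes VEH lay with the tumours titled _7, and SPON with the RP-6306 tumours of the title set to which VEH belongs. Ctsk and Grem1 set VEH apart from the tumours titled _7. Ctsk had 33.3 to 84.2 CPM in vehicle tumours titled _7, below every VEH library, and Grem1 had 8.14 to 65.3 CPM, also below. Pkmyt1 had 16.1 to 33.4 CPM in vehicle tumours titled _7, 59.3 to 94.7 CPM in RP-6306 tumours without the suffix and 18.2 to 29 CPM in WT tumours. These levels are given without a test.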

How the data were processed

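RNA sequencing counts of 33 mouse mammary tumour libraries were read from 1 deposited table of whole-number counts per gene. Per the labels' protocols, a commercial provider prepared and sequenced libraries from total RNA isolated with Trizol. Per the submitters' processing notes, STAR 2.7.10a, HTSeq and edgeR were used with the build GRCm38. Strandedness and annotation are not given in the sources used here, so reads of overlapping genes on opposite strands may be mixed. A deposited table of log2 CPM served only to check the counts, and its values differed from log2 CPM recomputed with a prior count of 2 by at most 0.0576.

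VEH and SPON libraries were numbered in accession order within their group, which pairs nothing. The 16 pairs of libraries within groups all differed by more than sampling noise (chi-square per degree of freedom 23.3 to 548). Rows without a symbol held 0.0482% of the counts and were tested under their Ensembl ID. The quasi-likelihood test of edgeR 4.0.16 was run on the 9 libraries in R 4.3.3, after filterByExpr and TMM scaling, and p-values were adjusted by Benjamini-Hochberg over 15485 genes. Printed CPM use TMM factors over the 33 libraries. The SE was taken from the F statistic.

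The 54 gene lists (1179 entries, of which 3 matched no symbol) were described by counts and medians only. Counts were left out for the Hox, mast cell, NK and cytotoxic, and lymph node and salivary gland lists. Members described from these lists passed the filter mostly through 1 group. Other lists hold such members too, and their counts describe the tested members alone. Named were fixed genes of the cell cycle and cell identity, the 10 largest changes in each direction among genes called in the full fit and in all 9 fits without 1 library, if log2 CPM averaged 1 or more and every library of a group had over 1 CPM, and per list the 3 members with the smallest p. One such member is not reported here. These libraries, the lists and the contrast were chosen with earlier results of these data known. Ctsk, Acp5, Dcstamp, Ocstamp, Nfatc1, Tnfsf11, Tnfrsf11a, Fgfr2, Bpifa2, H19, Bard1, Ctsd, Trf, Twist1, Snai2, Fn1, Krt5, Trp63, Gata3, Cdkn2a, Spint2, Rab25, Cldn7, Prrx1, Snai1, Acan, Egfr, Erbb3, Col1a1, Tpsb2, Cldn12, Il33, Ccl20, Met, S100a8, S100a9, Lcn2, Ccnd3 and Wif1 were named after their values were seen. Alternatives covered normalisation, filter, tool, a fold threshold, the samples in the fit and leaving out libraries. Promoters are from RefSeq, GRCm38.p6.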

Additional observations from a re-analysis of the deposited data

Results flagged for a closer look

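Of 410 checks of a single library against the others of its group, over the genes named above on the scale of log2 CPM plus 1 and over 4 measures of each library, 31 found a library whose gap to its nearest neighbour took up more of the group's range than Dixon's 95% critical value. Chance flags about 1 in 20 such checks, and the genes are not independent. VEH 1 lay above the other VEH libraries for Erbb2 (58.9 CPM, next 39.9 CPM), Tmc4 (20.6 CPM, next 5.35 CPM), Col9a2 (10.8 CPM, next 0.968 CPM) and Srebf1 (151 CPM, next 120.3 CPM). VEH 1 lay below the other VEH libraries for Zeb2 (112 CPM, next 144 CPM) and Gata3 (10.7 CPM, next 13.2 CPM). VEH 3 lay above the other VEH libraries for Ctsd (1292 CPM, next 852 CPM). VEH 3 lay below the other VEH libraries for Mrc1 (191 CPM, next 351 CPM), Gli3 (43.8 CPM, next 55.6 CPM), S100a9 (2.49 CPM, next 13.4 CPM) and Met (1055 CPM, next 1884 CPM). VEH 4 lay above the other VEH libraries for Ccne2 (14.1 CPM, next 8.31 CPM), Adgre1 (67.1 CPM, next 59.7 CPM), Fdft1 (43.1 CPM, next 31.4 CPM) and Nop58 (106 CPM, next 77.4 CPM). VEH 4 lay below the other VEH libraries for Polr1b (28.6 CPM, next 34.8 CPM). SPON 1 lay above the other SPON libraries for Cnn1 (10.1 CPM, next 1.14 CPM). SPON 2 lay above the other SPON libraries for Mki67 (939 CPM, next 526 CPM), Ttn (2.69 CPM, next 0.700 CPM), Sesn1 (22.6 CPM, next 14.3 CPM), Ndufa4 (423 CPM, next 295 CPM) and Erbb3 (602 CPM, next 206 CPM). SPON 2 lay below the other SPON libraries for Irgm1 (22.5 CPM, next 67.2 CPM) and P4ha2 (18.8 CPM, next 48.7 CPM). SPON 3 lay above the other SPON libraries for Dcstamp (2.52 CPM, next 0.775 CPM). SPON 4 lay above the other SPON libraries for Cftr (220.1 CPM, next 6.72 CPM), Cks1b (241 CPM, next 117 CPM), Pim3 (183 CPM, next 148 CPM) and Bard1 (191 CPM, next 23.4 CPM). SPON 5 lay above the other SPON libraries for Ctsd (41541 CPM, next 1090.3 CPM). SPON 5 lay below the other SPON libraries for Gbp7 (5.46 CPM, next 19.3 CPM). No cause was tested for these values.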

How the results depend on the processing

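No paired analysis was possible because the libraries carry replicate numbers given in accession order and the groups share no animal or batch label. Of the 4361 genes called, 2510 passed a test against a fold of 1.5 (1359 higher and 1151 lower). A single fit over the 32 grouped libraries called 8550 genes (3733 higher and 4817 lower). Leaving out each library in turn gave 2460 to 4951 calls, 1409 to 2349 of them higher and 1051 to 2602 lower. With limma voom 4393 genes were called, 2632 higher and 1761 lower, so that 59.9% of calls were higher against 48.5% in the edgeR fit, and the median log2 fold change over all genes was 2.03e-05. The other settings stayed within 1.5 times of each count: 4322 calls with DESeq2 size factors, 3944 with no filter on low counts, 5855 with DESeq2's Wald test, 5448 with voom quality weights, 4339 with upper-quartile factors, 4482 without VEH 1, SPON 1 and SPON 4 together, and 4344 without SPON 1 and SPON 5 together, a setting added after the data were seen. Of 222 named genes, 189 were called, and 147 of these were called in all 9 fits that left out 1 library. Between 159 and 189 of the 189 kept their call under the other settings. Some uncalled genes changed sign. Leaving out each library in turn, Trp53 ranged from -0.25 to 0.46, S100a8 from -0.28 to 0.74, Hbb-bs from -0.014 to 2.46, Hba-a1 from -1.46 to 2.22 and Ctsd from -3.64 to 0.17 in log2 fold change. Without VEH 1, SPON 1 and SPON 4 together, log2 fold changes were -0.54 for Trp53, 1.23 for Krt14, -0.44 for Hbb-bt and 0.49 for H19. Without SPON 1 and SPON 5 together they were 2.05 for Hba-a1 and 0.11 for Ctsd. Hba-a1 was 1.01 with voom and 0.68 with quality weights, and Cd8a was 0.072 with voom. The cause was not tested. With 4 and 5 libraries a group, 6358 genes had an unadjusted p under 0.05, and genes with few counts could be bounded only from above or below.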

Other observations

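The library whose title says vehicle and whose treatment field says RP-6306 entered no comparison. It had 1.37 CPM of Epcam, 7.62 CPM of Cdh1, 5491 CPM of Vim and 97.9 CPM of Zeb1. It had 939.6 CPM of Ctsk, 88.3 CPM of Grem1, 155 CPM of Il1rl1 and 31.6 CPM of Pkmyt1, and Dcpp1 had no count.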
